A study of Danio rerio with 24 samples.

Results

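Livers of zebrafish that carry the Z form of human α1-antitrypsin (Z+) were compared with livers of zebrafish that carry the wildtype form (A+), 6 fish of each genotype, across the whole liver transcriptome. Of the 24 fish sequenced, these 12 carry a transgene, and of the 28210 genes in the count table, 11801 had a count over 100 in 3 or more of all fish and were tested. Z+ fish come from the line Tg(lfabp:eGFP-T2A-ZAAT) and A+ fish from the line Tg(lfabp:eGFP-T2A-AAT). In both lines the promoter of the liver fatty acid-binding protein drives eGFP, which a T2A peptide separates from the human protein. The other fish are the non-transgenic siblings of each line, Z- and A-, again 6 of each. All fish were 2 months old, and polyadenylated RNA of the liver was sequenced with strand information. Both lines were kept heterozygous by crossing to TU wildtype fish, so the Z+ and A+ livers differ in the form of the protein, in the line and its insertion site, and in the genome that surrounds it. The Z- and A- fish carry no transgene and differ in line and genome, and their values are given beside those of Z+ and A+ for that reason. Other differences between the Z- and A- fish were not tested. Genes of cholesterol synthesis and of autophagy were set aside and are not described.

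α1-antitrypsin is a serpin, a protease inhibitor that hepatocytes make in large amounts and secrete into the blood. The Z form folds poorly, part of it is held in the endoplasmic reticulum (ER), and it is removed by ER-associated degradation (ERAD) and by autophagy. A liver cell can answer a burden on the ER through the unfolded protein response (UPR), through the heat shock and amino acid responses, and through changes in secretion and metabolism, and the transcripts of these systems are among those described here.

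Counted reads ranged from 36807384 to 44715713 in Z+ fish and from 34434573 to 37412160 in A+ fish, and 3 counts, taken as the floor of detection, stood for 0.0492 to 0.149 CPM (a gene's counts per 1000000 counts of the scaled library size) over the 24 fish. Hepatocyte transcripts were abundant in every liver: 15 hepatocyte markers summed to between 80707 and 212026 CPM in Z+ livers and between 54440 and 244681 CPM in A+ livers, and 0 of the 15 were at 0 in every fish. Several fish stood apart from the others. A+ replicate 2 lay at 136 on the first principal component of the 12 fish (36.9% of the variance), where the others lay between -34.0 and 39.3. It held 10630 CPM of egg-cell and ovary transcripts (47 markers), followed by A+ replicate 1 with 743 CPM and A+ replicate 3 with 376 CPM, while the Z+ livers held between 8.36 and 244 CPM with a median of 10.7 CPM. Z+ replicates 3 and 6 and A+ replicate 5 held 14444, 12799 and 9741 CPM of intestinal transcripts, against 1496 to 3618 CPM in the other 9 transgenic fish, and among the non-transgenic fish A- replicate 6 held 31226 CPM. Z+ replicate 5 held 792403 CPM of vitellogenin transcripts, the yolk proteins that the liver of a laying female makes, and Z- replicate 2 held 829950 CPM. The 8 fish that stand apart, where they are left out together, are Z+ replicates 3, 5 and 6, A+ replicates 1, 2 and 5, Z- replicate 2 and A- replicate 6. In whole-liver RNA, fewer cells of a type and less RNA per cell cannot be told apart.

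Of the 11801 genes, 698 were higher in Z+ than in A+ livers (5.91%) and 699 were lower (5.92%) at an adjusted p under 0.05, by edgeR's quasi-likelihood test with Benjamini-Hochberg adjustment over all tested genes, the test behind every adjusted p given here. A gene that passes it is referred to as called. The median log2 fold change over all genes was -0.02. With library totals in place of TMM scaling this median moved to -0.21 and the split to 174 higher and 735 lower genes, so that changes are best read against the median of all genes. Among the called genes, 335 of the higher and 425 of the lower ones differed at least 2-fold, and 61 and 216 differed at least 4-fold. All 6 Z+ fish lay above all 6 A+ fish in 238 of the higher genes (2.02% of those tested) and below them in 121 of the lower genes (1.03%). Many of the lower genes had their level in 1 fish. For 228 of the 699 lower genes, A+ replicate 2 held more than 50% of the summed A+ level, and 14 of the 183 that still passed the filter without it were still lower. Of the other 471 lower genes, 352 were still lower without that fish.

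The count of genes depended on single fish and on the fish in the fit. With the 12 Z+ and A+ fish alone in the model, 236 genes were higher and 92 lower, with 226 that did not overlap. With all genotypes in the model, it fell to 279 higher and 282 lower genes without Z+ replicate 2, and to 416 and 455 without Z+ replicate 4. Without Z+ replicate 1 there were 474 higher and 349 lower genes. Without A+ replicate 2 there were 1025 higher and 596 lower genes. The count of a list in another fit is best read against the count of all genes in that fit. The genes whose fish do not overlap numbered 702 without A+ replicate 2 and 714 without Z+ replicate 5. Smaller groups overlap less readily, so these numbers cannot be set against that of the full groups. A core of 255 higher and 204 lower genes, 32.9% of the calls, was called whichever of the 12 fish was left out, and the fish of 255 of these 459 genes did not overlap. With all genotypes in the model, each p-value sets a difference against the spread between fish within a genotype, estimated over all 4 genotypes.

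**Figure D1:**
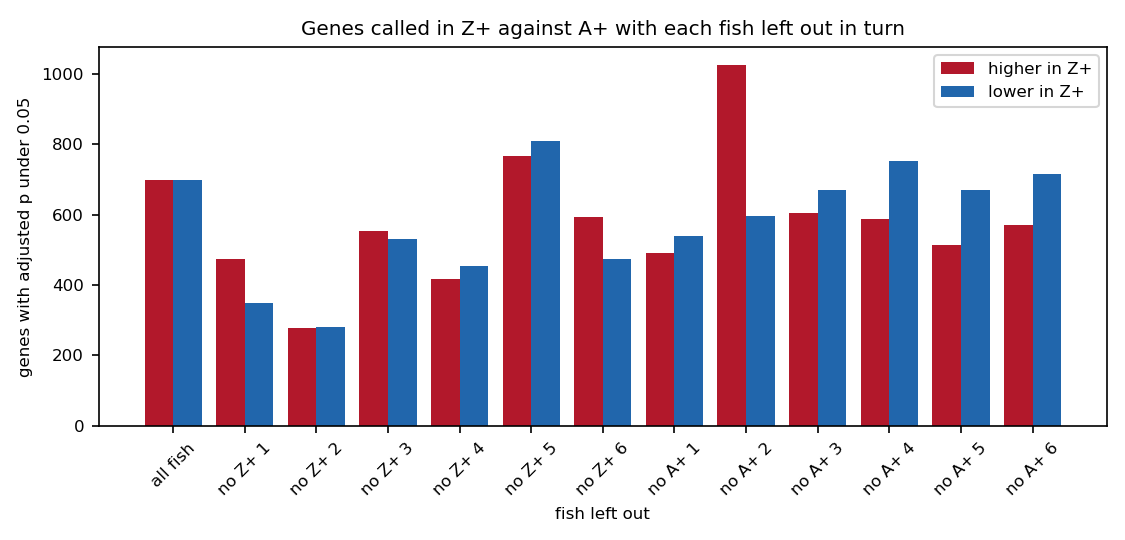
Number of genes with an adjusted p under 0.05 in Z+ against A+ livers (y axis), higher and lower in Z+, with all fish and with each of the 12 fish left out in turn (x axis). The counts were lowest without Z+ replicate 2 (279 higher, 282 lower), and the number of higher genes was greatest without A+ replicate 2 (1025).

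Among genes with a gene name and no overlap between the fish, the 12 largest rises ranged in log2 fold change from 2.1 (alas1) to 3.72 (klhl24b). Where 3 values follow a genotype, they are the lowest, the median and the highest of its 6 fish, and ± is the standard error of the log2 fold change. The gene klhl24b, named for a human adaptor of cullin-3 ubiquitin ligases, was at 4.16, 7.69 and 23.4 CPM in Z+ livers, against 0.481, 0.788 and 1.48 CPM in A+ livers (log2 fold change 3.72 ± 0.46, adjusted p = 4.33e-05), and every Z+ fish lay above every other fish, since Z- fish reached 1.22 CPM and A- fish 1.97 CPM. The FERM-domain gene frmd4bb was at 16.3, 21.0 and 103 CPM in Z+ livers, against 1.23, 2.22 and 10.4 CPM in A+ livers (log2 fold change 3.38 ± 0.62, adjusted p = 0.00253), with Z- and A- medians near the A+ level (2.70 CPM in Z- and 3.08 CPM in A-). The carotenoid-cleaving enzyme gene bco2l was at 4.46, 16.9 and 27.9 CPM in Z+ livers, against 0.984, 2.105 and 3.02 CPM in A+ livers (log2 fold change 3.03 ± 0.64, adjusted p = 0.006). No Z+ fish overlapped an A+ fish in these 3 genes, and the highest Z+ fish was several times above the Z+ median in frmd4bb. The anion exchanger gene slc26a3.2 was at 12.6, 17.5 and 44.4 CPM in Z+ livers, against 1.42, 2.90 and 7.19 CPM in A+ livers (log2 fold change 2.80 ± 0.56, adjusted p = 0.00417). It differed the other way between the non-transgenic fish (1.02, 1.60 and 2.24 CPM in Z- and 1.99, 3.65 and 24.7 CPM in A-, log2 fold change -2.22, adjusted p = 0.0474), with the highest A- value in A- replicate 6, the fish with the most intestinal transcripts, whose part in this difference was not tested.

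Other large rises concerned trafficking, signalling and metabolism. The sorting receptor gene sort1b, whose mammalian relative sortilin carries cargo from the Golgi, was at 2.37, 6.95 and 11.9 CPM in Z+ livers, against 1.12, 1.62 and 1.81 CPM in A+ livers (log2 fold change 2.24 ± 0.38, adjusted p = 0.00142). The gene alas1, for the enzyme that begins heme synthesis in the liver, was at 121, 213 and 385 CPM in Z+ livers, against 32.1, 49.2 and 97.4 CPM in A+ livers (log2 fold change 2.1 ± 0.50, adjusted p = 0.0121), and the Z- and A- medians were 137 CPM in Z- and 51.1 CPM in A- (not called, log2 fold change 1.57, adjusted p = 0.121). The membrane receptor gene lmbr1l was at 23.9, 51.1 and 57.4 CPM in Z+ livers, against 3.11, 8.66 and 17.8 CPM in A+ livers (log2 fold change 2.37 ± 0.39, adjusted p = 0.00106). In all of these the Z+ and A+ fish did not overlap. The stress gene tp53inp1, a p53 target in mammals, was at 9.06, 12.98 and 29.3 CPM in Z+ livers, against 0.985, 1.43 and 8.004 CPM in A+ livers (log2 fold change 2.52 ± 0.63, adjusted p = 0.0157), but the Z- and A- medians, 26.4 CPM in Z- and 10.8 CPM in A-, lay on either side of the Z+ median, and A+ was called below A- (log2 fold change -2.18, adjusted p = 0.0285). The gene fam20ca, related to a Golgi kinase of secreted proteins, was at 2.21, 5.11 and 9.20 CPM in Z+ livers, against 0.308, 0.951 and 1.64 CPM in A+ livers (log2 fold change 2.54 ± 0.81, adjusted p = 0.0451). klhl24b, frmd4bb, bco2l, slc26a3.2, sort1b, alas1, lmbr1l and tp53inp1 kept the call whichever fish was left out, and fam20ca lost it in 9 of 12 leave-one-out fits (adjusted p up to 0.0984, without Z+ replicate 2).

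The 12 largest falls by the same rule reached down to genes with almost no reads in Z+ livers, and the smallest of them was bach2a with a log2 fold change of -2.45. In 3 of them both non-transgenic medians lay well above the Z+ median. The transcriptional repressor zbtb16a was at 0.475, 2.55 and 17.0 CPM in Z+ livers, against 17.7, 30.6 and 55.0 CPM in A+ livers (log2 fold change -2.66 ± 0.57, adjusted p = 0.00648), with 27.5 CPM in Z- and 30.6 CPM in A- as medians. The transcriptional repressor bach2a, which in mammals acts in lymphocytes, was at 0.606, 1.72 and 2.85 CPM in Z+ livers, against 3.49, 9.60 and 17.5 CPM in A+ livers (log2 fold change -2.45 ± 0.44, adjusted p = 0.00222). Median bach2a levels were 8.29 CPM in Z- and 12.2 CPM in A-. The adhesion gene igsf9ba was at 12.5, 18.4 and 27.1 CPM in Z+ livers, against 45.99, 139 and 292 CPM in A+ livers (log2 fold change -2.99 ± 0.41, adjusted p = 0.000168). Median igsf9ba levels were 53.4 CPM in Z- and 62.1 CPM in A-. In zbtb16a the highest Z+ fish was just below the lowest A+ fish, whereas igsf9ba left a wide gap. The membrane protein gene tmem243a was at 0.0235, 0.256 and 0.583 CPM in Z+ livers, against 0.585, 0.977 and 12.1 CPM in A+ livers (log2 fold change -3.53 ± 0.95, adjusted p = 0.0222), and its highest value was that of A+ replicate 2. zbtb16a, bach2a and igsf9ba kept the call whichever fish was left out, and tmem243a lost it without Z+ replicate 2 (adjusted p = 0.0561). tmem243a did not pass the filter without A+ replicate 2, so that dependence on that fish could not be tested.

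**Figure D2:**
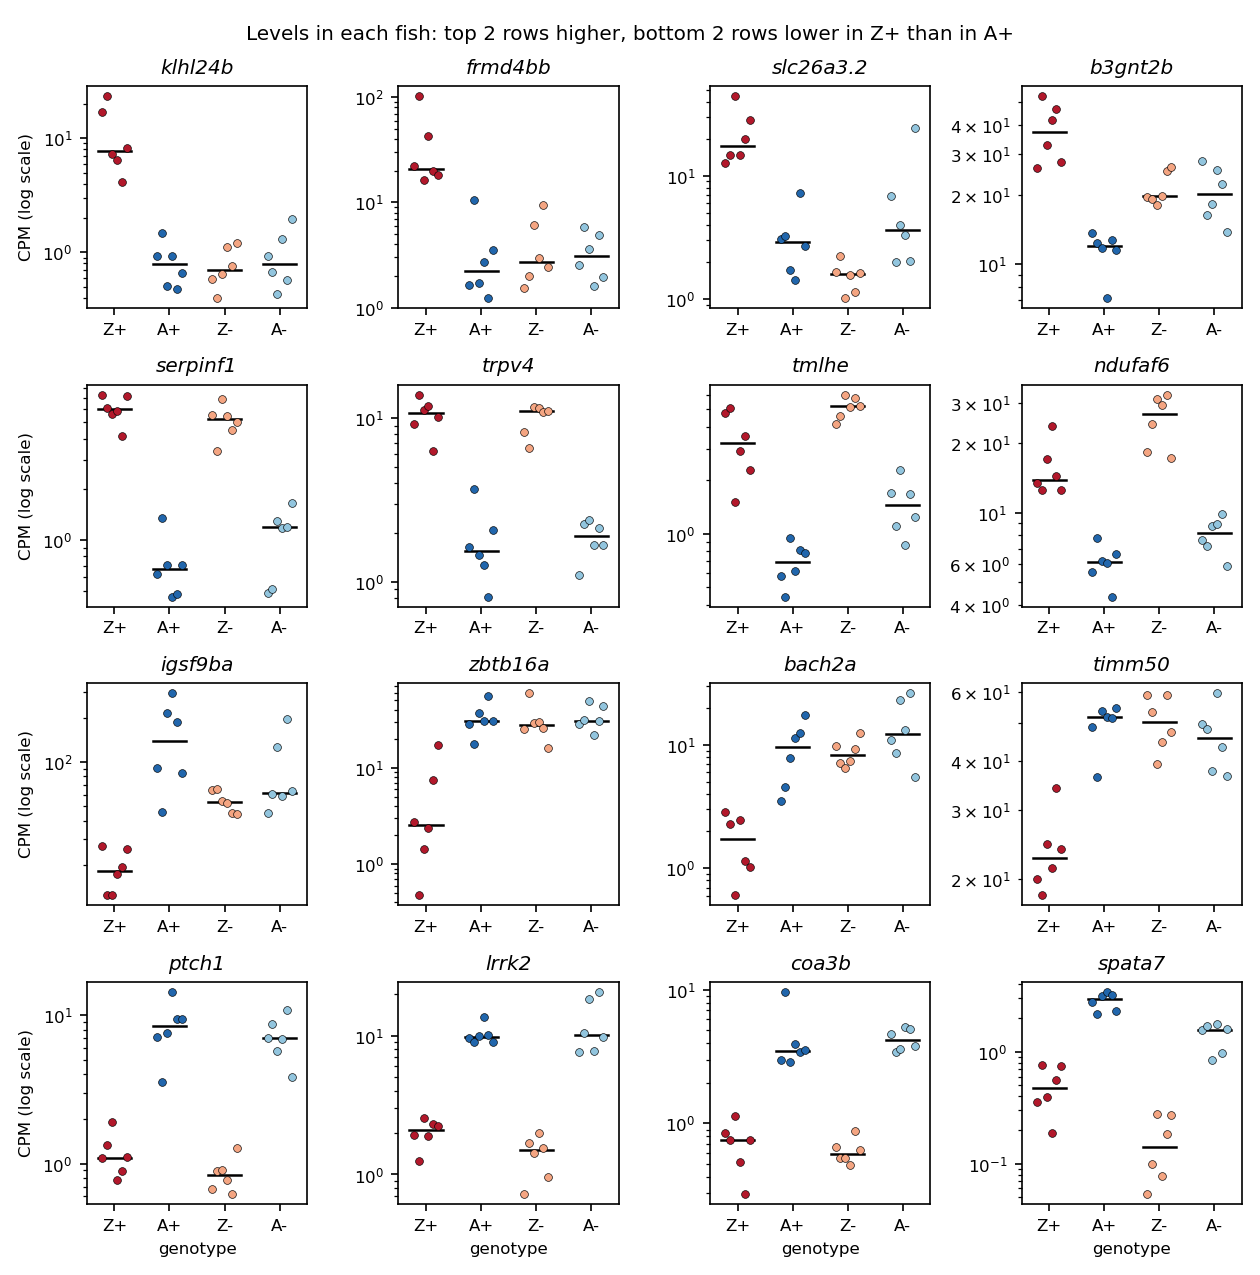
Level of 16 genes in each of the 24 fish (y axis, CPM on a log scale) by genotype (x axis, Z+, A+, Z-, A-). In klhl24b, frmd4bb and b3gnt2b the Z+ fish stand above the A+ fish while Z- and A- overlap, whereas in trpv4, ptch1, lrrk2, coa3b and spata7 the Z+ and Z- fish stand together on one side and the A+ and A- fish on the other.

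Many of the largest and clearest differences were also present between the non-transgenic fish of both lines. Of the 1397 called genes, 71 (5.08%) were also called in Z- against A-, where 138 genes were called (1.17%), so that 51.4% of the Z- against A- calls recurred in Z+ against A+. Of the 71 genes, 33 were higher and 35 lower in both comparisons, and 3 went in opposite directions. These comparisons share no fish. Among the 359 genes with no overlap between Z+ and A+ fish, 41 were called in both.

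The ion channel gene trpv4 was at 6.28, 10.7 and 13.9 CPM in Z+ livers, against 0.812, 1.55 and 3.69 CPM in A+ livers (log2 fold change 2.51 ± 0.29, adjusted p = 2.58e-05), and its Z- and A- medians were 10.98 CPM in Z- and 1.92 CPM in A- (log2 fold change 2.41, adjusted p = 2.47e-05). The Hedgehog receptor gene ptch1, itself a target of the pathway, was at 0.775, 1.09 and 1.92 CPM in Z+ livers, against 3.53, 8.55 and 14.4 CPM in A+ livers (log2 fold change -2.86 ± 0.31, adjusted p = 9.71e-06). Median ptch1 levels were 0.834 CPM in Z- and 7.02 CPM in A- (log2 fold change -3.07, adjusted p = 2.4e-06). The kinase gene lrrk2, known from Parkinson's disease, was at 1.26, 2.08 and 2.55 CPM in Z+ livers, against 8.99, 9.81 and 13.7 CPM in A+ livers (log2 fold change -2.34 ± 0.27, adjusted p = 2.58e-05). Median lrrk2 levels were 1.49 CPM in Z- and 10.1 CPM in A- (log2 fold change -3.16, adjusted p = 4.65e-07). In these 3 genes both members of each line stood together, and the lines did not overlap. The same held for serpinf1, a secreted serpin without inhibitory activity, at 4.12, 5.97 and 7.28 CPM in Z+ livers, against 0.461, 0.673 and 1.34 CPM in A+ livers (log2 fold change 3.04 ± 0.31, adjusted p = 5.98e-06). Median serpinf1 levels were 5.21 CPM in Z- and 1.19 CPM in A- (log2 fold change 2.27, adjusted p = 0.0001). The gene tmlhe, for the enzyme that begins carnitine synthesis, was at 1.501, 3.25 and 5.08 CPM in Z+ livers, against 0.443, 0.697 and 0.952 CPM in A+ livers (log2 fold change 2.27 ± 0.29, adjusted p = 5.43e-05). Median tmlhe levels were 5.21 CPM in Z- and 1.46 CPM in A- (log2 fold change 1.80, adjusted p = 0.000709). The cytochrome c oxidase assembly gene coa3b was at 0.297, 0.750 and 1.13 CPM in Z+ livers, against 2.88, 3.46 and 9.58 CPM in A+ livers (log2 fold change -2.60 ± 0.32, adjusted p = 3.46e-05). Median coa3b levels were 0.592 CPM in Z- and 4.21 CPM in A-. Both genes differed in the same direction between the non-transgenic fish. The ciliary gene spata7 and the palmitoyltransferase gene zdhhc8b were also lower in both comparisons (-2.51 ± 0.38, 0.000475 and -2.87 ± 0.56, 0.00395 for Z+ over A+ as log2 fold change and adjusted p, -3.07, 8.77e-05 and -2.26, 0.0467 for Z- over A-). trpv4, ptch1, lrrk2, serpinf1, tmlhe, coa3b and spata7 kept the call whichever fish was left out, and zdhhc8b kept it in the 10 of 12 leave-one-out fits in which it passed the filter. zdhhc8b did not pass the filter without A+ replicate 2, so that dependence on that fish could not be tested.

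Some of the lower genes were close to absent from Z+ and Z- fish and passed the filter through A+ and A- fish alone. Their fitted fold changes depend on the prior count and are left out for the emptiest genes. The gene doc2d, related to calcium sensors of vesicle release, was at 0, 0.0276 and 0.111 CPM in Z+ livers, against 1.53, 2.44 and 3.91 CPM in A+ livers (adjusted p = 0.00097), and vwa7, with a von Willebrand factor A domain, at 0, 0 and 0.316 CPM in Z+ livers, against 1.36, 2.84 and 4.71 CPM in A+ livers (adjusted p = 0.00171). In Z- fish, vwa7 had 0 counts, which is at least 124-fold lower than in A- fish with 3 counts over the group as the floor. The secreted-factor gene fibinb was at 0, 0.214 and 0.594 CPM in Z+ livers, against 1.95, 2.496 and 4.98 CPM in A+ livers (log2 fold change -3.65 ± 0.56, adjusted p = 0.000493). Median fibinb levels were 0.267 CPM in Z- and 3.12 CPM in A-. The MHC class I gene mhc1zfa was at 0, 0.261 and 0.387 CPM in Z+ livers, against 1.19, 2.02 and 3.54 CPM in A+ livers (log2 fold change -3.31 ± 0.52, adjusted p = 0.00058), with 0.0989 CPM in Z- and 3.03 CPM in A-, and near-identical MHC copies could share its reads. Among genes without a descriptive name, si:ch211-254c8.3 had 6 counts summed over the Z+ fish against 2442 over the A+ fish. The gene zmp:0000000634 had 3 counts summed over the Z+ fish against 339 over the A+ fish, and zgc:165583 had 2 against 641. With so few Z+ counts no fold is given for them. The gene si:ch211-194p6.12 was at 0.105, 0.484 and 2.60 CPM in Z+ livers, against 28.5, 57.5 and 96.3 CPM in A+ livers. Median si:ch211-194p6.12 levels were 0.311 CPM in Z- and 73.3 CPM in A-.

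**Figure D3:**
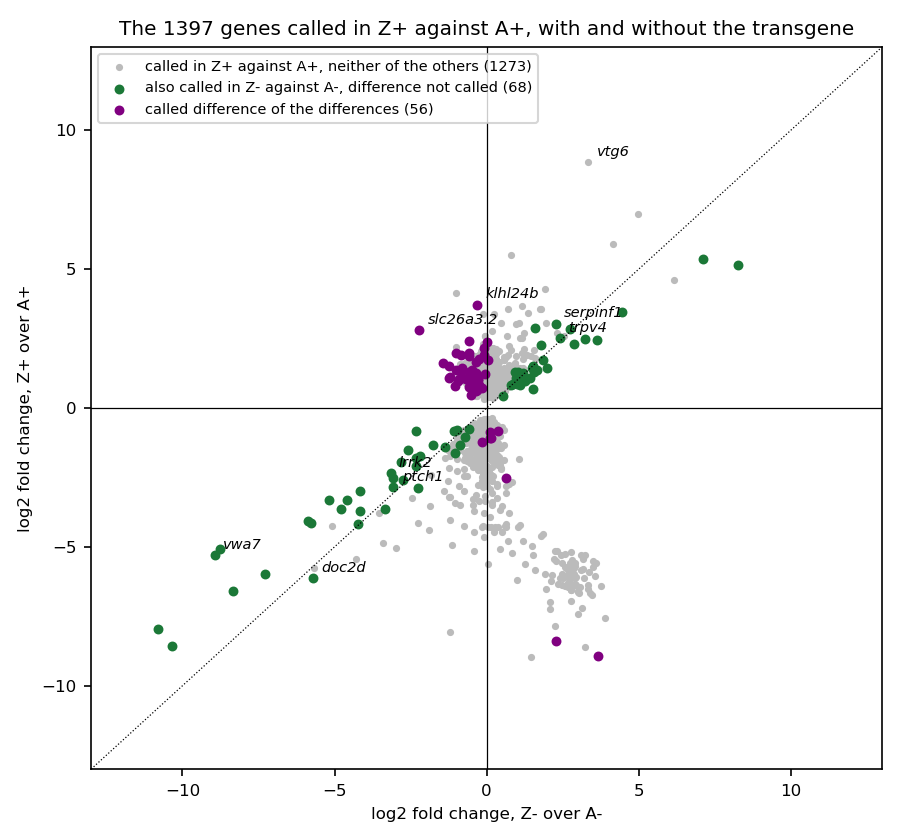
Log2 fold change of the 1397 called genes in Z+ over A+ (y axis) against Z- over A- (x axis), with the diagonal dotted. The 68 green genes were called in both comparisons without a called difference between them, the 56 purple genes had a called difference, and the grey genes had neither, and trpv4, serpinf1, ptch1 and lrrk2 lie near the diagonal and klhl24b far from it.

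Whether Z+ against A+ differed from Z- against A- was tested as a difference of the differences in the same model. It was called for 62 genes (0.525%), of which 53 (0.449%) were positive, 9 (0.0763%) were negative and 56 were also called in Z+ against A+. The count was 30 without Z+ replicate 2, 39 without Z+ replicate 1 and 36 without A+ replicate 1, and 285 without Z+ replicate 3, 268 without Z+ replicate 5 and 238 without A+ replicate 2. With library totals it was 1. Those named here in addition to the rule for named genes were chosen after their values were seen. The glycosyltransferase gene b3gnt2b, which extends lactosamine chains on glycoproteins, was at 26.1, 37.3 and 53.1 CPM in Z+ livers, against 7.17, 12.1 and 13.7 CPM in A+ livers (log2 fold change 1.72 ± 0.21, adjusted p = 3.34e-05; difference of the differences 1.68, adjusted p = 0.0118), and Z- and A- fish had medians of 19.6 CPM in Z- and 20.2 CPM in A-. The blood-group glycosyltransferase gene abo was at 3.90, 8.39 and 12.2 CPM in Z+ livers, against 0.853, 2.31 and 2.98 CPM in A+ livers (log2 fold change 1.98 ± 0.36, adjusted p = 0.00222; difference 2.56, adjusted p = 0.0173). The volume-regulated channel subunit gene lrrc8db was at 7.20, 12.6 and 13.7 CPM in Z+ livers, against 2.71, 4.52 and 5.24 CPM in A+ livers (log2 fold change 1.36 ± 0.20, adjusted p = 0.000335; difference 1.85, adjusted p = 0.00646). In each of these 3 genes the Z+ and A+ fish did not overlap. The stress kinase gene map3k5 (ASK1), which feeds the JNK and p38 pathways, was at 15.7, 21.7 and 37.6 CPM in Z+ livers, against 4.60, 7.47 and 8.52 CPM in A+ livers (log2 fold change 1.75 ± 0.24, adjusted p = 0.000158; difference 1.99, adjusted p = 0.0118). The hepatocyte growth factor receptor gene met was at 10.5, 17.4 and 33.2 CPM in Z+ livers, against 4.95, 8.20 and 9.52 CPM in A+ livers (log2 fold change 1.29 ± 0.26, adjusted p = 0.00456; difference 1.87, adjusted p = 0.018). The cAMP sensor gene rapgef3 was at 8.62, 12.9 and 25.7 CPM in Z+ livers, against 2.21, 3.82 and 5.32 CPM in A+ livers (log2 fold change 1.97 ± 0.39, adjusted p = 0.00401; difference 2.97, adjusted p = 0.0144). Z- and A- medians were 5.78 CPM in Z- and 7.70 CPM in A- for met and 4.16 CPM in Z- and 5.87 CPM in A- for rapgef3, so in both it was the Z+ fish that stood high. b3gnt2b, abo, lrrc8db, map3k5, met and rapgef3 kept the call whichever fish was left out.

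In me1, bcat1 and pdk2a the Z+ median lay between the A+ median and those of the non-transgenic fish, and the A+ median was the lowest of the 4. The transcript of malic enzyme me1, which supplies NADPH for fatty acid synthesis, was at 151, 1393 and 2609 CPM in Z+ livers, against 109, 299 and 422 CPM in A+ livers (log2 fold change 2.35 ± 0.56, adjusted p = 0.0133), but at 2694 CPM in Z- and 2203 CPM in A-, and A+ was below A- (log2 fold change -3.02, adjusted p = 0.00544). The branched-chain aminotransferase gene bcat1 was at 155, 285 and 915 CPM in Z+ livers, against 17.9, 81.3 and 219 CPM in A+ livers (log2 fold change 2.12 ± 0.56, adjusted p = 0.0209), with 629.8 CPM in Z- and 432 CPM in A- (A+ over A-, log2 fold change -2.36, adjusted p = 0.0166). The pyruvate dehydrogenase kinase gene pdk2a was at 11.01, 25.9 and 62.0 CPM in Z+ livers, against 2.09, 7.12 and 11.9 CPM in A+ livers (log2 fold change 2.14 ± 0.54, adjusted p = 0.0164), with 62.5 CPM in Z- and 58.8 CPM in A- (A+ over A-, log2 fold change -3.29, adjusted p = 0.00298). All 3 genes overlapped between Z+ and A+ fish. A+ was likewise called below A-, with Z+ called above A+, for the lipid droplet coat gene plin1, the fatty acid activation gene acsl1b, the acyl-CoA dehydrogenase gene acad9, the lysosomal glucocerebrosidase gene gba, the lysosomal enzyme targeting gene gnptab, the proteasome genes psmd5 and psmc1b and the complement gene c7a. Their log2 fold changes of A+ over A- and adjusted p-values were -2.30, 0.0208 for plin1, -2.12, 0.00843 for acsl1b, -1.63, 0.0103 for acad9, -0.89, 0.00792 for gba, -0.85, 0.00198 for gnptab, -0.92, 0.00478 for psmd5, -1.04, 0.0014 for psmc1b and -1.89, 0.00536 for c7a. Both comparisons share the A+ fish. me1 and pdk2a kept the call whichever fish was left out, and bcat1 lost it without Z+ replicate 2 (adjusted p = 0.0729).

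Nuclear receptors, the ligand-gated transcription factors through which a liver cell reads bile acids, sterols, retinoids and steroid hormones, were called mostly higher. Of 41 tested receptor genes 11 were higher (26.8%) and 1 was lower, against 5.91% and 5.92% of all genes. Their median log2 fold change was 0.25, against -0.02. Within the lines, the median of this list was 0.19 for Z+ over Z- and -0.32 for A+ over A-. Over all genes these medians were 0.03 and 0.005. Both steps share fish with Z+ against A+. The glucocorticoid receptor gene nr3c1 was at 15.4, 20.5 and 30.6 CPM in Z+ livers, against 6.22, 9.32 and 11.8 CPM in A+ livers (log2 fold change 1.22 ± 0.25, adjusted p = 0.00441). The gene nr2c2, an orphan receptor of the testicular receptor family, was at 2.08, 3.15 and 6.12 CPM in Z+ livers, against 0.743, 1.25 and 1.34 CPM in A+ livers (log2 fold change 1.66 ± 0.29, adjusted p = 0.00142). Medians were 8.05 CPM in Z- and 9.86 CPM in A- for nr3c1 and 1.202 CPM in Z- and 1.33 CPM in A- for nr2c2, below the Z+ level in both. The liver X receptor gene nr1h3, a sterol sensor, was at 18.2, 22.1 and 26.3 CPM in Z+ livers, against 9.14, 11.4 and 14.5 CPM in A+ livers (log2 fold change 0.88 ± 0.18, adjusted p = 0.00574). In these 3 genes every Z+ fish lay above every A+ fish. The farnesoid X receptor gene nr1h4, the bile acid sensor, was at 24.1, 36.2 and 75.9 CPM in Z+ livers, against 6.45, 14.5 and 28.2 CPM in A+ livers (log2 fold change 1.35 ± 0.33, adjusted p = 0.0146; difference of the differences 2.18, adjusted p = 0.0313). Its paralog nr1h5 was at 29.3, 37.5 and 44.7 CPM in Z+ livers, against 10.2, 16.1 and 29.2 CPM in A+ livers (log2 fold change 1.16 ± 0.27, adjusted p = 0.0107). The repressor genes nr0b1 and nr0b2b, which are related to DAX1 and the bile acid-induced SHP of mammals, were at 26.8, 64.7 and 67.8 CPM in Z+ livers, against 7.97, 22.9 and 27.8 CPM in A+ livers (log2 fold change 1.42 ± 0.31, adjusted p = 0.00671) and 0.221, 2.74 and 9.32 CPM in Z+ livers, against 0.0984, 0.244 and 1.65 CPM in A+ livers (log2 fold change 2.71 ± 0.83, adjusted p = 0.0378). The fish of nr1h4, nr0b1 and nr0b2b overlapped, while those of nr1h5 did not.

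Among the remaining receptors, the retinoid X receptor gene rxrgb was at 2.56, 13.9 and 22.6 CPM in Z+ livers, against 3.46, 3.96 and 6.62 CPM in A+ livers (log2 fold change 1.53 ± 0.38, adjusted p = 0.0152). The retinoic acid receptor gene raraa was at medians 6.32 CPM in Z+ and 2.26 CPM in A+ (log2 fold change 1.18 ± 0.34, adjusted p = 0.029). The estrogen receptor gene esr2a was at medians 29.7 CPM in Z+ and 15.8 CPM in A+ (log2 fold change 0.80 ± 0.23, adjusted p = 0.0299), and the orphan receptor gene nr2c1 at medians 7.82 CPM in Z+ and 6.17 CPM in A+ (log2 fold change 0.46 ± 0.15, adjusted p = 0.0494). The thyroid hormone receptor gene thraa was the lower one, at 2.15, 3.22 and 5.46 CPM in Z+ livers, against 3.86, 5.50 and 11.3 CPM in A+ livers (log2 fold change -0.80 ± 0.25, adjusted p = 0.0384). The coactivator gene ncoa3, which binds such receptors, was at 14.8, 19.1 and 27.9 CPM in Z+ livers, against 7.62, 9.79 and 13.6 CPM in A+ livers (log2 fold change 1.02 ± 0.21, adjusted p = 0.00471), with no overlap. nr3c1, nr2c2, nr1h3, nr1h5 and nr0b1 kept the call whichever fish was left out, and nr1h4 lost it without Z+ replicate 2 (adjusted p = 0.0517) and nr0b2b lost it in 8 of 12 leave-one-out fits (adjusted p up to 0.115, without Z+ replicate 4). ncoa3 kept the call whichever fish was left out, and rxrgb lost it without Z+ replicate 2 (adjusted p = 0.0563), raraa lost it in 4 of 12 leave-one-out fits (adjusted p up to 0.0654, without Z+ replicate 4), esr2a lost it in 2 of 12 leave-one-out fits (adjusted p up to 0.0832, without Z+ replicate 2), nr2c1 lost it in 10 of 12 leave-one-out fits (adjusted p up to 0.134, without Z+ replicate 2) and thraa lost it in 7 of 12 leave-one-out fits (adjusted p up to 0.0888, without Z+ replicate 2). The count of receptor genes was 10 higher and 0 lower without A+ replicate 2, 5 and 0 without Z+ replicate 2, and 6 and 1 with library totals. Over all genes, 1025 of 11563 were higher and 596 lower without A+ replicate 2. The counts over all genes were 279 and 282 of 11755 without Z+ replicate 2, and 174 and 735 of 11801 with library totals.

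Of 21 tested sensors and targets of the UPR, 6 were higher and 0 were lower in Z+ livers (28.6% and 0%), against 5.91% and 5.92% of all genes, with a median log2 fold change of 0.34. Between the non-transgenic fish, Z- over A-, the median of this list was 0.30, against -0.01 over all genes. The part of the line in these counts was not tested. The gene creb3l3l, of a family of ER-anchored transcription factors that in mammalian liver act on acute phase and lipid genes, was at 17.8, 32.1 and 41.8 CPM in Z+ livers, against 13.8, 14.8 and 17.0 CPM in A+ livers (log2 fold change 1.05 ± 0.20, adjusted p = 0.00351), with no overlap. The gene ern2, a paralog of the sensor IRE1, was at 1.76, 2.12 and 3.10 CPM in Z+ livers, against 0.692, 1.01 and 1.49 CPM in A+ livers (log2 fold change 1.17 ± 0.24, adjusted p = 0.00582). Both were above A+ in every Z+ fish. Both had a called difference of the differences (1.32, adjusted p = 0.0313 for creb3l3l and 1.59, adjusted p = 0.0327 for ern2). The other called genes of this list had none. The sensor gene atf6 was at 10.8, 25.8 and 83.4 CPM in Z+ livers, against 8.43, 13.3 and 21.8 CPM in A+ livers (log2 fold change 1.34 ± 0.41, adjusted p = 0.0394), and mbtps2, the protease that releases membrane-bound factors such as Atf6, was at medians 12.3 CPM in Z+ and 8.32 CPM in A+ (log2 fold change 0.58 ± 0.19, adjusted p = 0.0461). The gene ddit3 (CHOP), which the UPR induces late, was at 8.55, 11.4 and 16.6 CPM in Z+ livers, against 3.62, 6.38 and 8.22 CPM in A+ livers (log2 fold change 0.99 ± 0.30, adjusted p = 0.0383). The gene eif2ak2, for an eIF2α kinase that senses double-stranded RNA, was at medians 3.04 CPM in Z+ and 1.90 CPM in A+ (log2 fold change 0.63 ± 0.21, adjusted p = 0.0497). It is not an ER sensor, but it is counted in this list and among the 6 higher genes. In atf6, mbtps2 and eif2ak2 the fish of both genotypes overlapped. creb3l3l and ern2 kept the call whichever fish was left out, and atf6 lost it in 7 of 12 leave-one-out fits (adjusted p up to 0.115, without Z+ replicate 5), mbtps2 lost it in 10 of 12 leave-one-out fits (adjusted p up to 0.12, without Z+ replicate 2), ddit3 lost it in 8 of 12 leave-one-out fits (adjusted p up to 0.0697, without Z+ replicate 6) and eif2ak2 lost it in 10 of 12 leave-one-out fits (adjusted p up to 0.132, without Z+ replicate 2). With library totals 1 of the 21 was called, without Z+ replicate 2 there were 2 and without A+ replicate 2 there were 4. All of these were higher. In the same fits, 174 of 11801, 279 of 11755 and 1025 of 11563 genes were higher. With only the 12 Z+ and A+ fish in the model 2 were called, both higher, where 236 of all 11083 tested genes were higher.

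The genes that carry out folding, degradation and transport at the ER held few calls, where 11.8% of all tested genes were called. Of 29 tested ER chaperones and oxidoreductases, 0 were higher and 1 was lower, the disulfide isomerase gene pdia6, at 23.6, 25.9 and 42.2 CPM in Z+ livers, against 35.4, 59.3 and 133 CPM in A+ livers (log2 fold change -1.22 ± 0.30, adjusted p = 0.0155), and the median log2 fold change was -0.00. Of 42 tested ERAD genes, edgeR called 0 (median 0.05), with 5 at an unadjusted p under 0.05. DESeq2 called 0 of them higher and 1 lower, and limma's voom 2 higher and 1 lower. Of 68 genes of COPI and COPII vesicle coats and tethers, 1 was higher and 2 were lower. These were the Golgi tether gene golga4, at 22.6, 26.2 and 30.6 CPM in Z+ livers, against 15.1, 17.9 and 18.2 CPM in A+ livers (log2 fold change 0.60 ± 0.13, adjusted p = 0.006), golga1 and trappc10. Levels of golga1 were at medians 14.2 CPM in Z+ and 22.8 CPM in A+ (log2 fold change -0.80 ± 0.19, adjusted p = 0.0109), and those of trappc10 at medians 14.97 CPM in Z+ and 21.9 CPM in A+ (log2 fold change -0.54 ± 0.16, adjusted p = 0.0332). The fish did not overlap in golga4 and trappc10. pdia6, golga4 and golga1 kept the call whichever fish was left out, and trappc10 lost it in 4 of 12 leave-one-out fits (adjusted p up to 0.075, without Z+ replicate 1). Without A+ replicate 2, 3 ERAD genes were higher and 0 lower, and 8 vesicle coat and tether genes were higher and 3 lower. That fit had 1025 of all 11563 tested genes higher and 596 lower. Of 24 genes of the ATF4 and amino acid response, 2 were higher and 1 was lower. The pseudokinase gene trib3 was at 31.8, 42.5 and 69.9 CPM in Z+ livers, against 19.4, 26 and 35.3 CPM in A+ livers (log2 fold change 0.75 ± 0.19, adjusted p = 0.0195). The mitochondrial serine hydroxymethyltransferase gene shmt2 was at medians 77.5 CPM in Z+ and 45.6 CPM in A+ (log2 fold change 0.66 ± 0.21, adjusted p = 0.0421). The lower gene was vldlr, at medians 1.78 CPM in Z+ and 3.90 CPM in A+ (log2 fold change -4.27 ± 1.196, adjusted p = 0.0266), whose highest value was in A+ replicate 2. trib3 lost the call without Z+ replicate 2 (adjusted p = 0.0517), shmt2 lost it in 9 of 12 leave-one-out fits (adjusted p up to 0.113, without Z+ replicate 2) and vldlr lost it in 4 of 12 leave-one-out fits (adjusted p up to 0.168, without A+ replicate 2). Without Z+ replicate 2, 0 of these 24 were higher and 0 lower, where 279 of all 11755 tested genes were higher and 282 lower.

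The circadian clock of the liver runs on a loop in which Clock and Npas2 with Arntl switch on the per and cry repressors. Of 33 tested clock genes, 5 were higher and 2 lower (median 0.25), against 5.91% and 5.92% of all genes. The counts were 1 and 1 with a median of 0.00 without Z+ replicate 2, 7 and 3 without A+ replicate 2, and 0 and 2 with library totals. In these fits 279 and 282 of all 11755 genes, 1025 and 596 of 11563, and 174 and 735 of 11801 were higher and lower. The repressor gene per2, which light induces in zebrafish, was at 33.4, 44.6 and 63.1 CPM in Z+ livers, against 19.6, 27.5 and 32.5 CPM in A+ livers (log2 fold change 0.76 ± 0.19, adjusted p = 0.0174). The output gene dbpa was at 6.31, 6.99 and 13.1 CPM in Z+ livers, against 2.89, 4.14 and 5.81 CPM in A+ livers (log2 fold change 1.04 ± 0.22, adjusted p = 0.00671). The other 3 higher genes were per3 (medians 28.0 CPM in Z+ and 19.96 CPM in A+; log2 fold change 0.55 ± 0.16, adjusted p = 0.0321), cry1aa (medians 26.5 CPM in Z+ and 20.9 CPM in A+; log2 fold change 0.52 ± 0.17, adjusted p = 0.0493) and ciartb (medians 2.41 CPM in Z+ and 1.38 CPM in A+; log2 fold change 0.80 ± 0.22, adjusted p = 0.024). On the lower side were cry5, which belongs to the light-responsive photolyase family, at 6.10, 7.86 and 9.87 CPM in Z+ livers, against 12.5, 16.0 and 26.3 CPM in A+ livers (log2 fold change -1.14 ± 0.26, adjusted p = 0.0093), and npas2, at 0.166, 1.03 and 2.46 CPM in Z+ livers, against 1.44, 3.24 and 6.59 CPM in A+ livers (log2 fold change -1.65 ± 0.50, adjusted p = 0.0363). In per2, dbpa and cry5 no Z+ fish overlapped an A+ fish, whereas in npas2 they did. The time of day at which each liver was taken is not in the labels, and its part in these values was not tested. dbpa and cry5 kept the call whichever fish was left out, and ciartb kept it in the 10 of 12 leave-one-out fits in which it passed the filter, per2 lost it without Z+ replicate 2 (adjusted p = 0.0563), per3 lost it in 5 of 12 leave-one-out fits (adjusted p up to 0.1, without Z+ replicate 2), cry1aa lost it in 9 of 12 leave-one-out fits (adjusted p up to 0.175, without Z+ replicate 2) and npas2 lost it in 4 of 12 leave-one-out fits (adjusted p up to 0.0877, without A+ replicate 5).

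**Figure D4:**
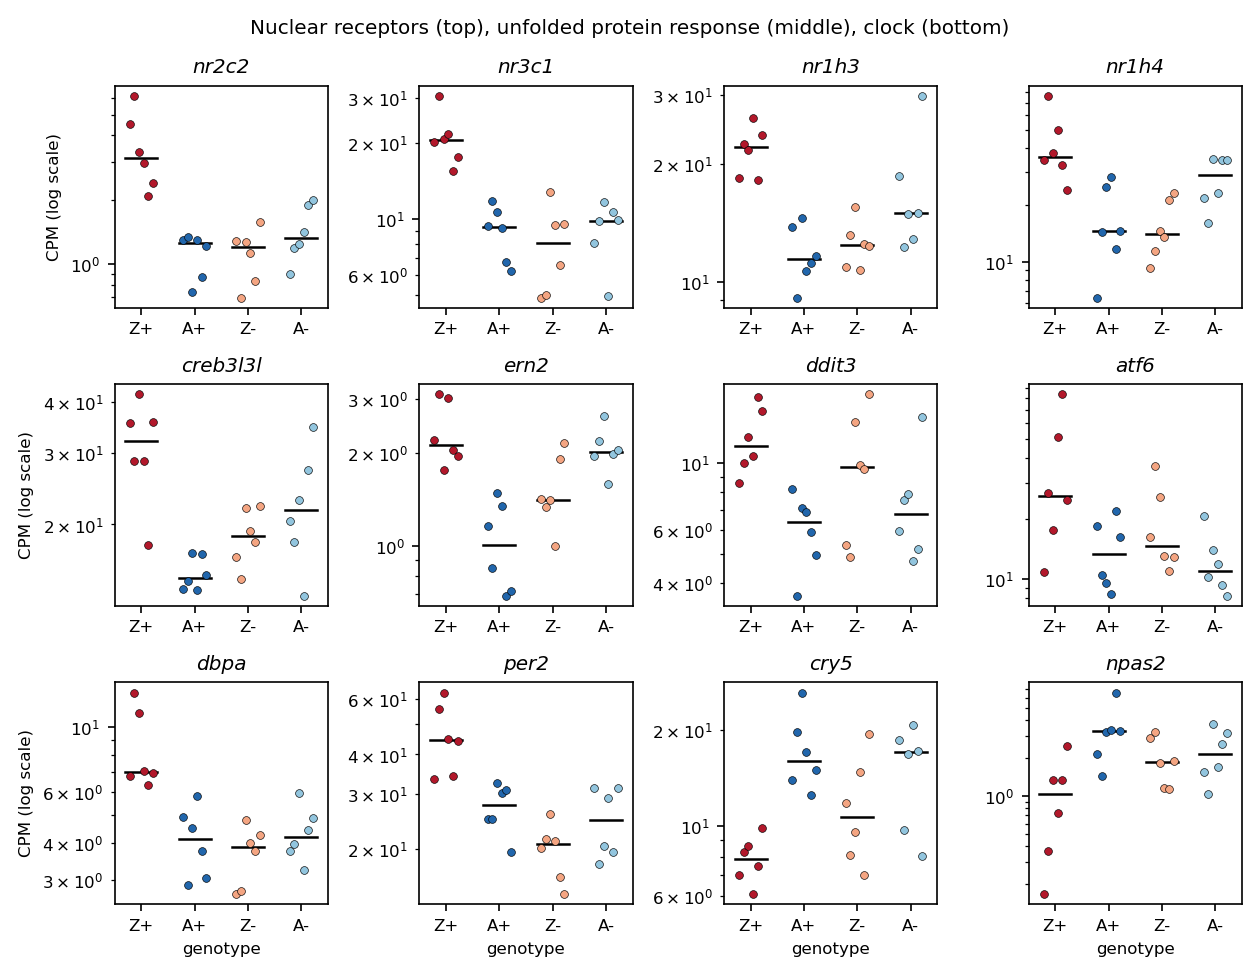
Level of 12 genes of nuclear receptors, the UPR and the clock in each of the 24 fish (y axis, CPM on a log scale) by genotype (x axis, Z+, A+, Z-, A-). In nr2c2, nr3c1, nr1h3, creb3l3l, ern2, dbpa and per2 all Z+ fish lie above all A+ fish, in cry5 they lie below, and in atf6, nr1h4 and npas2 the groups overlap.

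**Figure D5:**
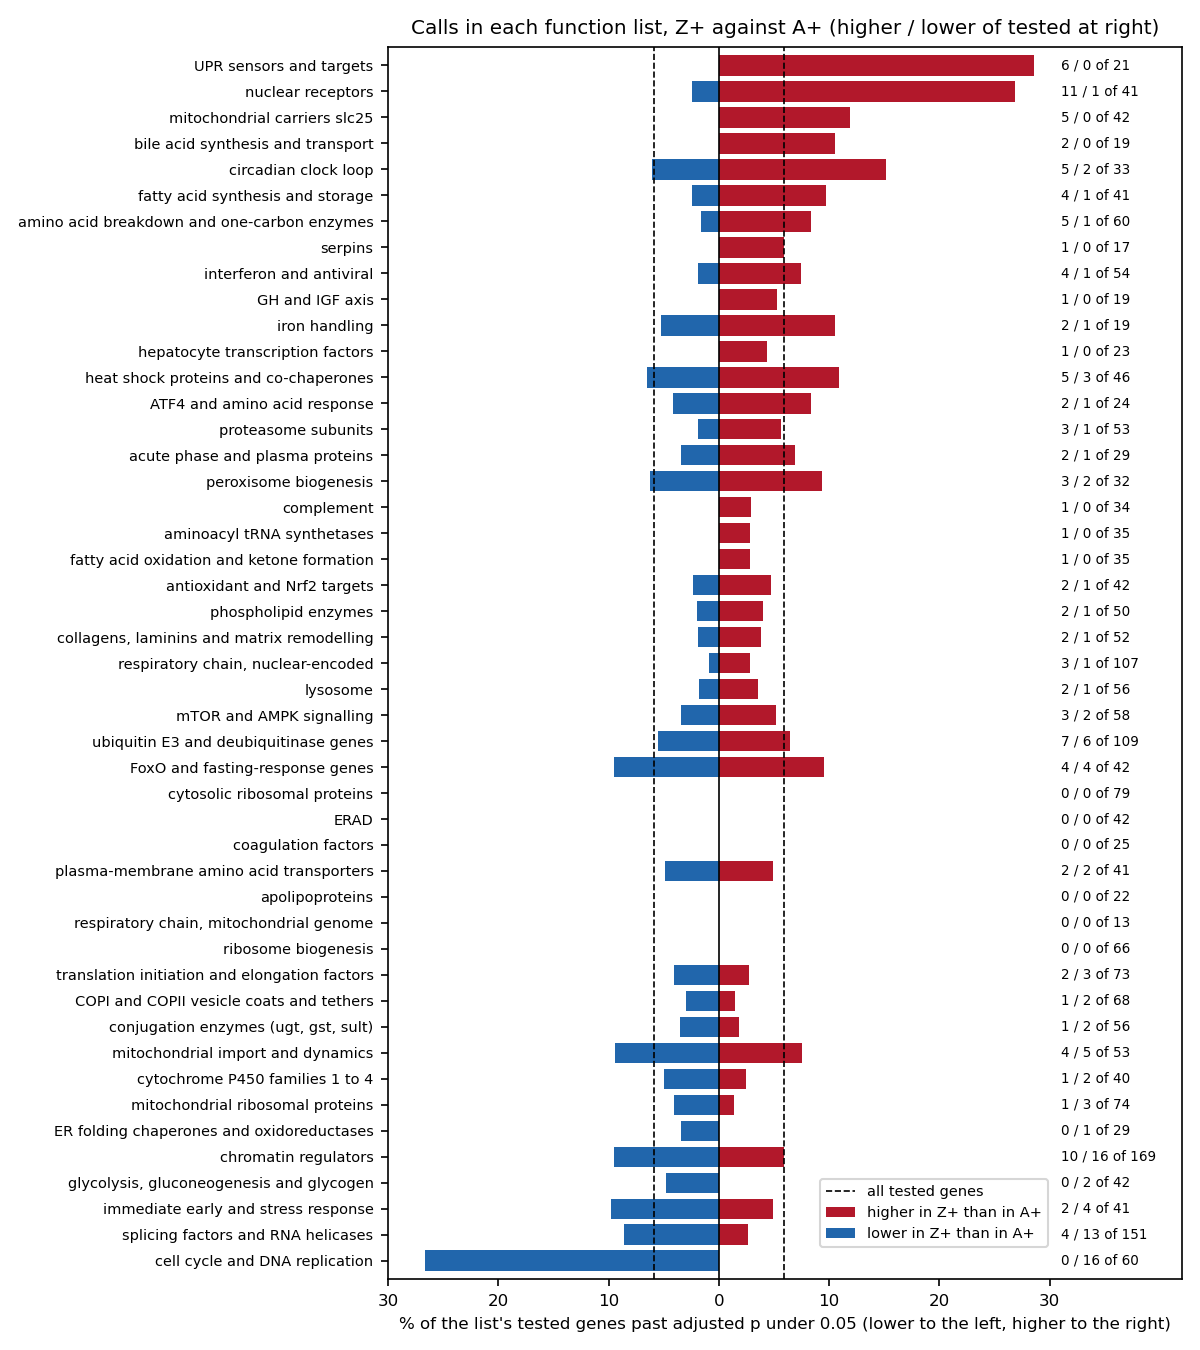
Share of the tested genes of each of 47 function lists (y axis) that was called in Z+ against A+ livers, higher to the right and lower to the left (x axis, percent), with the shares over all tested genes as dashed lines and the counts at the right. Nuclear receptors (11 of 41) and the UPR (6 of 21) had the greatest shares of higher genes among these lists, and cell cycle and DNA replication (16 of 60) the greatest share of lower genes.

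Genes of lipid metabolism were called in both directions, where 5.91% of all genes were higher and 5.92% lower. Of 41 tested genes of fatty acid synthesis and storage, 4 were higher (me1, lpin1, plin1 and acsl1b) and 1 was lower, with 4 and 4 without A+ replicate 2 and 2 and 0 without Z+ replicate 2. The phosphatidate phosphatase gene lpin1, which makes diacylglycerol for triglycerides, was at 86.3, 223 and 253 CPM in Z+ livers, against 38.6, 56.3 and 92.9 CPM in A+ livers (log2 fold change 1.69 ± 0.38, adjusted p = 0.00926). The gene gpam, whose product takes the first step of triglyceride synthesis, was at medians 15.8 CPM in Z+ and 41.3 CPM in A+ (log2 fold change -0.89 ± 0.27, adjusted p = 0.0354). The ketone-using lipogenic enzyme gene aacs was at 47.8, 179.5 and 258 CPM in Z+ livers, against 268, 515 and 904 CPM in A+ livers (log2 fold change -1.66 ± 0.40, adjusted p = 0.0143), with no overlap and with 826 CPM in Z- and 702 CPM in A-, so that Z+ was low against both. The lysophospholipid transporter gene mfsd2ab, one of the most abundant called transcripts, was at 346, 785 and 968 CPM in Z+ livers, against 217, 322 and 534 CPM in A+ livers (log2 fold change 0.93 ± 0.30, adjusted p = 0.0462). Of 35 genes of fatty acid oxidation and ketone formation, 1 was higher, acad9, at 23.3, 41.9 and 82.9 CPM in Z+ livers, against 10.7, 16.1 and 30.02 CPM in A+ livers (log2 fold change 1.44 ± 0.35, adjusted p = 0.0143). Of 22 apolipoprotein genes edgeR called 0, with 4 at an unadjusted p under 0.05, while DESeq2 and voom each called 1 higher and 2 lower, and edgeR called 0 higher and 2 lower without A+ replicate 2. The most abundant of them, apoa1b, was at 9423, 25351 and 36518 CPM in Z+ livers, against 9192, 37572 and 45962 CPM in A+ livers. Of 50 phospholipid enzyme genes, 2 were higher, the lysosomal phospholipase gene pla2g15 (medians 42.1 CPM in Z+ and 21.99 CPM in A+; log2 fold change 0.80 ± 0.20, adjusted p = 0.0142) and the phospholipase D gene pld1a (medians 49.3 CPM in Z+ and 27.0 CPM in A+; log2 fold change 0.90 ± 0.22, adjusted p = 0.0142), and 1 was lower, lpcat4, whose highest value of 51.9 CPM was in A+ replicate 2. lpin1, aacs, acad9, pla2g15 and pld1a kept the call whichever fish was left out, and gpam lost it in 8 of 12 leave-one-out fits (adjusted p up to 0.0845, without Z+ replicate 2), mfsd2ab lost it in 8 of 12 leave-one-out fits (adjusted p up to 0.122, without Z+ replicate 2) and lpcat4 lost it in 7 of 12 leave-one-out fits (adjusted p up to 0.672, without A+ replicate 2).

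Of the genes of bile acid and of sugar metabolism, 10.5% and 4.76% were called, against 11.8% of all tested genes. Of 19 genes of bile acid synthesis and transport, 2 were higher, nr1h4 and nr0b2b, and 0 were lower. Of 42 genes of glycolysis, gluconeogenesis and glycogen, 0 were higher and 2 were lower. The lactate dehydrogenase gene ldhba was at medians 80.4 CPM in Z+ and 194 CPM in A+ (log2 fold change -1.06 ± 0.31, adjusted p = 0.0341). The hexokinase gene hk2 was at 0.250, 0.709 and 2.13 CPM in Z+ livers, against 1.2, 2.01 and 41.1 CPM in A+ livers (log2 fold change -3.19 ± 0.79, adjusted p = 0.0154), whose highest value was again in A+ replicate 2. ldhba lost the call in 7 of 12 leave-one-out fits (adjusted p up to 0.068, without Z+ replicate 6) and hk2 lost it without A+ replicate 2 (adjusted p = 0.0854). Without all 8 fish that stand apart, 0 of 40 such genes were higher and 11 lower, where 1015 of all 10747 tested genes were higher and 770 lower. The vitamin D 25-hydroxylase gene cyp2r1 was at 31.8, 67.2 and 93.8 CPM in Z+ livers, against 10.4, 15.9 and 26.4 CPM in A+ livers (log2 fold change 1.90 ± 0.41, adjusted p = 0.00728), with no overlap, and was the higher gene among 40 cytochrome P450 genes. The others called were cyp4v8, at medians 109 CPM in Z+ and 299 CPM in A+ (log2 fold change -1.14 ± 0.28, adjusted p = 0.0142), and cyp2k22, at 0.211, 1.48 and 11.2 CPM in Z+ livers, against 2.25, 36.0 and 645 CPM in A+ livers (log2 fold change -5.75 ± 1.57, adjusted p = 0.0236). The level of cyp2k22 spanned more than 2 orders of magnitude within A+. Of 56 conjugation enzyme genes, 1 was higher and 2 were lower. The neighbouring glutathione transferase genes gstm.2 and gstm.1 went opposite ways. The gene gstm.2 was at 5.79, 10.4 and 22.1 CPM in Z+ livers, against 2.92, 4.11 and 5.54 CPM in A+ livers (log2 fold change 1.45 ± 0.27, adjusted p = 0.0029). The gene gstm.1 was at 48.2, 55.2 and 79.1 CPM in Z+ livers, against 95.5, 115 and 151 CPM in A+ livers (log2 fold change -1.04 ± 0.17, adjusted p = 0.00091). Neither had any overlap, and reads could be split between such close copies. The sulfotransferase gene sult3st4 was at 0.447, 0.817 and 1.12 CPM in Z+ livers, against 1.05, 4.19 and 8.37 CPM in A+ livers (log2 fold change -2.41 ± 0.47, adjusted p = 0.00401), with Z- and A- medians of 0.547 CPM in Z- and 0.521 CPM in A-, so that A+ was the genotype that stood apart. cyp2r1, cyp4v8, gstm.2, gstm.1 and sult3st4 kept the call whichever fish was left out, and cyp2k22 lost it without Z+ replicate 1 (adjusted p = 0.0509). Without A+ replicate 2, 1 cytochrome P450 gene was higher and 6 were lower, and 2 conjugation enzyme genes were higher and 7 lower. That fit had 1025 of all 11563 tested genes higher and 596 lower.

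Mitochondrial genes were called in both directions, where 5.91% of all tested genes were higher and 5.92% lower. Of 42 tested carriers of the inner membrane (slc25 family), 5 were higher and 0 were lower (median 0.21). The carrier slc25a39, which brings glutathione into mitochondria, was at 76.1, 146 and 302 CPM in Z+ livers, against 55.1, 68.8 and 76.2 CPM in A+ livers (log2 fold change 1.30 ± 0.25, adjusted p = 0.00337). The pyrimidine nucleotide carrier slc25a36a was at 7.99, 11.5 and 18.8 CPM in Z+ livers, against 2.74, 4.87 and 6.80 CPM in A+ livers (log2 fold change 1.36 ± 0.33, adjusted p = 0.0146; difference of the differences 2.36, adjusted p = 0.021). The iron carrier slc25a28 was at medians 66.0 CPM in Z+ and 54.5 CPM in A+ (log2 fold change 0.35 ± 0.11, adjusted p = 0.0463), the smallest change of the 3. Of 53 genes of import and dynamics, 4 were higher and 5 lower (median -0.20). The outer membrane gene mtx3 was at 1.78, 3.38 and 4.66 CPM in Z+ livers, against 0.451, 0.800 and 1.32 CPM in A+ livers (log2 fold change 2.06 ± 0.32, adjusted p = 0.000665). The inner membrane protease gene afg3l2 was at medians 32.5 CPM in Z+ and 19.6 CPM in A+ (log2 fold change 0.64 ± 0.14, adjusted p = 0.00858). The fusion gene mfn2 was at medians 55.8 CPM in Z+ and 36.6 CPM in A+ (log2 fold change 0.65 ± 0.17, adjusted p = 0.0202) and the mitophagy kinase gene pink1 at medians 14.1 CPM in Z+ and 7.69 CPM in A+ (log2 fold change 0.82 ± 0.23, adjusted p = 0.0278). The lower genes included 2 of the import machinery. The gene timm50, for the receptor of the inner membrane translocase, was at 18.2, 22.6 and 34.1 CPM in Z+ livers, against 36.5, 51.8 and 54.7 CPM in A+ livers (log2 fold change -1.06 ± 0.16, adjusted p = 0.000398; difference -1.20, adjusted p = 0.015). The gene timm10b, a chaperone of the intermembrane space, was at 7.48, 8.63 and 11.5 CPM in Z+ livers, against 12.7, 14.98 and 18.2 CPM in A+ livers (log2 fold change -0.78 ± 0.14, adjusted p = 0.00298). In mtx3, timm50 and timm10b no fish overlapped, and the medians for timm50 were 50.5 CPM in Z- and 45.9 CPM in A-. Without Z+ replicate 2, 2 carriers were higher, and 2 genes of import and dynamics were higher and 2 lower. slc25a39, slc25a36a, mtx3, afg3l2, timm50 and timm10b kept the call whichever fish was left out, and slc25a28 lost it in 11 of 12 leave-one-out fits (adjusted p up to 0.114, without Z+ replicate 2), mfn2 lost it in 2 of 12 leave-one-out fits (adjusted p up to 0.0729, without Z+ replicate 2) and pink1 lost it in 2 of 12 leave-one-out fits (adjusted p up to 0.0838, without Z+ replicate 2).

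Genes of the respiratory chain held few calls, where 11.8% of all tested genes were called. Of 107 tested nuclear-encoded genes, 3 were higher and 1 was lower (median 0.18). The complex I assembly gene ndufaf6 was at 12.5, 13.9 and 23.8 CPM in Z+ livers, against 4.33, 6.12 and 7.79 CPM in A+ livers (log2 fold change 1.36 ± 0.20, adjusted p = 0.000274), with 26.8 CPM in Z- and 8.18 CPM in A- (log2 fold change 1.66, adjusted p = 2.34e-05), a difference present between the lines without the transgene. The complex I subunit gene ndufa1 was at 73.6, 81.2 and 102 CPM in Z+ livers, against 39.6, 56.9 and 72.4 CPM in A+ livers (log2 fold change 0.54 ± 0.14, adjusted p = 0.0185). The assembly gene ndufaf4 was at 3.91, 4.68 and 5.66 CPM in Z+ livers, against 5.17, 7.61 and 9.45 CPM in A+ livers (log2 fold change -0.63 ± 0.17, adjusted p = 0.0244). Of the 13 respiratory chain genes of the mitochondrial genome edgeR called 0 (1 at an unadjusted p under 0.05, and 1 lower by DESeq2 and by voom), at a median log2 fold change of -0.09. Other entries of that genome are not in this list. Of 74 mitochondrial ribosomal proteins, 1 was higher, mrpl2 (log2 fold change 0.59 ± 0.15, adjusted p = 0.0203), and 3 were lower, among them mrpl1 (log2 fold change -0.67 ± 0.18, adjusted p = 0.0199) and mrpl21 (log2 fold change -0.68 ± 0.20, adjusted p = 0.0299). ndufaf6 and ndufa1 kept the call whichever fish was left out, and ndufaf4 lost it without Z+ replicate 2 (adjusted p = 0.0583), mrpl2 lost it in 2 of 12 leave-one-out fits (adjusted p up to 0.0737, without Z+ replicate 2), mrpl1 lost it without Z+ replicate 2 (adjusted p = 0.0509) and mrpl21 lost it in 3 of 12 leave-one-out fits (adjusted p up to 0.0701, without Z+ replicate 2).

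Of 60 enzymes of amino acid breakdown and one-carbon metabolism, 5 were higher and 1 was lower (8.33% and 1.67%), against 5.91% and 5.92% of all genes. Beside bcat1, the tryptophan dioxygenase gene tdo2b was at 5.20, 25.5 and 64.8 CPM in Z+ livers, against 4.05, 8.39 and 13.1 CPM in A+ livers (log2 fold change 1.86 ± 0.46, adjusted p = 0.0157). The gene bckdk, whose product restrains branched-chain amino acid breakdown, was at medians 56.2 CPM in Z+ and 32.1 CPM in A+ (log2 fold change 0.89 ± 0.26, adjusted p = 0.0324). The S-adenosylmethionine synthesis gene mat2ab was at medians 14.9 CPM in Z+ and 7.72 CPM in A+ (log2 fold change 0.88 ± 0.26, adjusted p = 0.0324), and the folate enzyme gene mthfs was the lower one, at medians 10.2 CPM in Z+ and 21.9 CPM in A+ (log2 fold change -1.02 ± 0.30, adjusted p = 0.0318). All 4 overlapped between Z+ and A+ fish. Of 41 plasma-membrane amino acid transporters, 2 were higher, slc38a10 (0.51 ± 0.16, 0.0406 as log2 fold change and adjusted p) and slc36a1 (0.64 ± 0.21, 0.0461), and 2 were lower, slc38a3a (-1.63 ± 0.40, 0.015) and slc7a6 (-1.38 ± 0.45, 0.0491). The glutamine transporter slc38a3a had the largest difference, at 18.9, 37.7 and 55.6 CPM in Z+ livers, against 32.6, 123 and 184 CPM in A+ livers. The counts for the 60 enzymes were 1 higher and 0 lower without Z+ replicate 2 and 3 higher and 5 lower without A+ replicate 2. tdo2b and slc38a3a kept the call whichever fish was left out, and bckdk lost it in 6 of 12 leave-one-out fits (adjusted p up to 0.0949, without Z+ replicate 4), mat2ab lost it in 6 of 12 leave-one-out fits (adjusted p up to 0.0975, without Z+ replicate 2), mthfs lost it in 6 of 12 leave-one-out fits (adjusted p up to 0.0644, without A+ replicate 4), slc38a10 lost it in 8 of 12 leave-one-out fits (adjusted p up to 0.12, without Z+ replicate 2), slc36a1 lost it in 8 of 12 leave-one-out fits (adjusted p up to 0.116, without Z+ replicate 1) and slc7a6 lost it in 7 of 12 leave-one-out fits (adjusted p up to 0.333, without A+ replicate 2).

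Cytosolic protein quality control showed a mixed picture, where 5.91% of all tested genes were higher and 5.92% lower. Of 46 heat shock proteins and co-chaperones, 5 were higher and 3 lower (median -0.23), with 0 and 4 with library totals, 0 and 0 without Z+ replicate 2 and 7 and 5 without A+ replicate 2. The heat shock factor genes went opposite ways. The gene hsf2 was at 11.8, 24.1 and 32.9 CPM in Z+ livers, against 4.84, 7.65 and 25.5 CPM in A+ livers (log2 fold change 1.22 ± 0.34, adjusted p = 0.0245). The gene hsf1, for the main factor of the heat shock response, was at 2.93, 3.93 and 5.83 CPM in Z+ livers, against 5.11, 6.45 and 10.2 CPM in A+ livers (log2 fold change -0.69 ± 0.19, adjusted p = 0.0268). The glucocorticoid receptor co-chaperone gene fkbp5 was at 327, 556 and 762 CPM in Z+ livers, against 82.4, 200.1 and 531 CPM in A+ livers (log2 fold change 1.15 ± 0.33, adjusted p = 0.0301), and the co-chaperone gene bag3 at medians 44.0 CPM in Z+ and 19.8 CPM in A+ (log2 fold change 1.02 ± 0.29, adjusted p = 0.0303). The Hsp70 and Hsp90 linker gene stip1 was at medians 35.9 CPM in Z+ and 52.0 CPM in A+ (log2 fold change -0.72 ± 0.23, adjusted p = 0.0451), dnajb14, an ER-membrane J-protein, had a log2 fold change of 0.78 (adjusted p = 0.0252) and the small heat shock protein gene hspb1 one of 1.63 (adjusted p = 0.0499). The fish of both genotypes overlapped in all 7. hsf2 lost the call in 2 of 12 leave-one-out fits (adjusted p up to 0.0705, without Z+ replicate 2), hsf1 lost it in 3 of 12 leave-one-out fits (adjusted p up to 0.0644, without Z+ replicate 2), fkbp5 lost it in 4 of 12 leave-one-out fits (adjusted p up to 0.0668, without Z+ replicate 2), bag3 lost it in 6 of 12 leave-one-out fits (adjusted p up to 0.0652, without Z+ replicate 2), stip1 lost it in 8 of 12 leave-one-out fits (adjusted p up to 0.115, without A+ replicate 2), dnajb14 lost it in 2 of 12 leave-one-out fits (adjusted p up to 0.0694, without Z+ replicate 2) and hspb1 lost it in 10 of 12 leave-one-out fits (adjusted p up to 0.13, without Z+ replicate 6).

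Of 53 proteasome subunits and assembly genes, 3 were higher and 1 was lower (5.66% and 1.89%), against 5.91% and 5.92% of all genes. The assembly chaperone gene psmd5 was at 6.0, 6.56 and 7.72 CPM in Z+ livers, against 2.29, 3.42 and 5.47 CPM in A+ livers (log2 fold change 0.84 ± 0.17, adjusted p = 0.00441), with no overlap. The gene psmc1b was at medians 20.9 CPM in Z+ and 13.2 CPM in A+ (log2 fold change 0.61 ± 0.16, adjusted p = 0.0185) and psmd12 at medians 30.7 CPM in Z+ and 41.5 CPM in A+ (log2 fold change -0.43 ± 0.12, adjusted p = 0.0242). Of 109 ubiquitin ligase and deubiquitinase genes, 7 were higher and 6 lower (6.42% and 5.50%), near the shares of all genes. The counts were 19 and 3 without A+ replicate 2, where 1025 of all 11563 tested genes were higher and 596 lower. Apart from klhl24b, the deubiquitinase gene usp2b was at 22.4, 30.7 and 39.1 CPM in Z+ livers, against 4.54, 7.20 and 11.4 CPM in A+ livers (log2 fold change 2.03 ± 0.39, adjusted p = 0.00338). The ligase gene nedd4a was at 6.46, 8.77 and 11.6 CPM in Z+ livers, against 10.97, 45.1 and 95.2 CPM in A+ livers (log2 fold change -2.46 ± 0.40, adjusted p = 0.00091). The level of nedd4a was low in Z- and A- too (11.5 CPM in Z- and 16.8 CPM in A-), and A+ was called above A- (log2 fold change 1.48, adjusted p = 0.022). The F-box gene fbxo30b, of an atrophy-related family, was at medians 1.15 CPM in Z+ and 1.76 CPM in A+ (log2 fold change -1.97 ± 0.52, adjusted p = 0.0212). psmd5, usp2b and nedd4a kept the call whichever fish was left out, and psmc1b lost it in 2 of 12 leave-one-out fits (adjusted p up to 0.0588, without Z+ replicate 2), psmd12 lost it without Z+ replicate 3 (adjusted p = 0.0508) and fbxo30b lost it without A+ replicate 2 (adjusted p = 0.104).

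Genes of RNA and protein synthesis held few calls, where 11.8% of all tested genes were called. Of 66 ribosome biogenesis genes edgeR called 0, and 63 had a negative log2 fold change and the median was -0.38, against -0.02 over all genes. At an unadjusted p under 0.05 there were 12 such genes. DESeq2 called 3 of them lower, voom 15 and edgeR with library totals 6, and 18 were called lower by edgeR without Z+ replicate 5. Of 79 cytosolic ribosomal proteins edgeR and DESeq2 called 0 and voom 1 lower. 4 had an unadjusted p below 0.05, and the median was 0.16, which was 0.05 with library totals and -0.01 without A+ replicate 2. Of 73 translation factors 2 were higher and 3 lower. The eIF3 subunit genes eif3eb and eif3hb were at 10.3, 12.6 and 18.5 CPM in Z+ livers, against 5.07, 7.58 and 10.6 CPM in A+ livers (log2 fold change 0.84 ± 0.20, adjusted p = 0.014) and 5.37, 6.33 and 7.79 CPM in Z+ livers, against 3.198, 4.22 and 5.11 CPM in A+ livers (log2 fold change 0.63 ± 0.19, adjusted p = 0.0366). The cap-binding gene eif4e1c was at 36.1, 57.3 and 97.0 CPM in Z+ livers, against 62.1, 110.4 and 129 CPM in A+ livers (log2 fold change -0.79 ± 0.23, adjusted p = 0.0284). The gene eif2s1a, for the eIF2α subunit that the stress kinases phosphorylate, was at 23.2, 26.9 and 34.8 CPM in Z+ livers, against 34.7, 43.3 and 44.97 CPM in A+ livers (log2 fold change -0.55 ± 0.16, adjusted p = 0.0305). Of 35 aminoacyl tRNA synthetases and their partners 1 was higher, aimp2 (medians 48.2 CPM in Z+ and 35.3 CPM in A+; log2 fold change 0.55 ± 0.15, adjusted p = 0.0233). eif3eb kept the call whichever fish was left out, and eif3hb lost it in 7 of 12 leave-one-out fits (adjusted p up to 0.0986, without Z+ replicate 2), eif4e1c lost it in 4 of 12 leave-one-out fits (adjusted p up to 0.0699, without Z+ replicate 2), eif2s1a lost it in 3 of 12 leave-one-out fits (adjusted p up to 0.0699, without Z+ replicate 2) and aimp2 lost it without Z+ replicate 2 (adjusted p = 0.0701).

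Of 151 splicing factors and RNA helicases, 4 were higher and 13 lower (2.65% and 8.61%), against 5.91% and 5.92% of all genes. The median was -0.25, and the counts were 8 and 14 without A+ replicate 2 and 3 and 5 without Z+ replicate 2. The paralogs rbm25a and rbm25b, regulators of splice site choice, went opposite ways. In rbm25a the level was 17.1, 18.6 and 25.8 CPM in Z+ livers, against 6.502, 9.53 and 11.5 CPM in A+ livers (log2 fold change 1.08 ± 0.15, adjusted p = 0.000195), and it was also higher in Z- than in A- (11.2 CPM in Z- and 5.97 CPM in A-; log2 fold change 0.97, adjusted p = 0.000812). In rbm25b it was 13.8, 15.01 and 17.1 CPM in Z+ livers, against 20.6, 22.8 and 43.0 CPM in A+ livers (log2 fold change -0.77 ± 0.16, adjusted p = 0.00554), with medians of 20.3 CPM in Z- and 21.8 CPM in A-. Neither overlapped between Z+ and A+ fish. The splicing factor gene srsf7b was at 2.64, 3.43 and 3.99 CPM in Z+ livers, against 1.52, 1.93 and 2.33 CPM in A+ livers (log2 fold change 0.83 ± 0.17, adjusted p = 0.00441), again with a difference between Z- and A- (log2 fold change 0.79, adjusted p = 0.0175). The U2 snRNP gene snrpb2 was at 3.04, 6.08 and 6.62 CPM in Z+ livers, against 8.89, 9.14 and 34.3 CPM in A+ livers (log2 fold change -1.23 ± 0.31, adjusted p = 0.0154). The mRNA export helicase gene ddx19 was at 20.6, 28.2 and 44.1 CPM in Z+ livers, against 42.5, 48.4 and 128 CPM in A+ livers (log2 fold change -1.02 ± 0.24, adjusted p = 0.012). Both were highest in A+ replicate 2. rbm25a, rbm25b, srsf7b, snrpb2 and ddx19 kept the call whichever fish was left out. Of 169 chromatin regulators, 10 were higher and 16 lower (5.92% and 9.47%). The counts were 26 and 7 without A+ replicate 2, 1 and 4 without Z+ replicate 2, and 0 and 12 with library totals. The genes named by the rule besides ncoa3 were kdm6al, a histone H3 demethylase gene, at 8.77, 10.1 and 13.2 CPM in Z+ livers, against 17.4, 19.2 and 36.4 CPM in A+ livers (log2 fold change -1.06 ± 0.18, adjusted p = 0.00131), smarca1 and dnmt1. The nucleosome remodelling gene smarca1 was at medians 13.9 CPM in Z+ and 8.45 CPM in A+ (log2 fold change 0.81 ± 0.20, adjusted p = 0.0139). The maintenance DNA methyltransferase gene dnmt1 was at 3.64, 8.79 and 17.7 CPM in Z+ livers, against 4.21, 28.1 and 242 CPM in A+ livers (log2 fold change -2.62 ± 0.65, adjusted p = 0.015). kdm6al kept the call whichever fish was left out, and smarca1 lost it without Z+ replicate 2 (adjusted p = 0.0524) and dnmt1 lost it without A+ replicate 2 (adjusted p = 0.0578).

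Iron genes included 1 of the larger falls. The iron hormone hepcidin (hamp), which the liver secretes to lower iron uptake and release, was at 0.743, 3.76 and 13.1 CPM in Z+ livers, against 1.74, 53.9 and 199 CPM in A+ livers (log2 fold change -4.13 ± 0.997, adjusted p = 0.0137). The groups overlapped, since A+ replicate 2 was at 1.74 CPM and the other A+ fish were between 35.2 and 199 CPM. Z- and A- medians were 12.96 CPM in Z- and 22.9 CPM in A- (not called, log2 fold change -2.25, adjusted p = 0.228). The hepcidin regulator gene hfe2 (hemojuvelin) was at 3.76, 5.96 and 16.7 CPM in Z+ livers, against 1.21, 2.03 and 3.73 CPM in A+ livers (log2 fold change 1.86 ± 0.40, adjusted p = 0.00671), with no overlap and with 1.999 CPM in Z- and 2.37 CPM in A-. The selenium transport gene selenop2 was at 163, 252 and 423 CPM in Z+ livers, against 81.2, 131 and 174 CPM in A+ livers (log2 fold change 1.11 ± 0.31, adjusted p = 0.0245). The bile pump gene abcc2 was at medians 282 CPM in Z+ and 149 CPM in A+ (log2 fold change 0.77 ± 0.23, adjusted p = 0.0369) and the thioredoxin reductase gene txnrd3 at medians 136 CPM in Z+ and 234 CPM in A+ (log2 fold change -0.72 ± 0.23, adjusted p = 0.0454). These were the 3 called genes among 42 antioxidant genes and Nrf2 targets (7.14%, against 11.8% of all tested genes). hamp and hfe2 kept the call whichever fish was left out, and selenop2 lost it in 2 of 12 leave-one-out fits (adjusted p up to 0.0744, without Z+ replicate 2), abcc2 lost it in 9 of 12 leave-one-out fits (adjusted p up to 0.0924, without Z+ replicate 2) and txnrd3 lost it in 7 of 12 leave-one-out fits (adjusted p up to 0.0997, without Z+ replicate 1).

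Genes of secreted plasma proteins held few calls, where 11.8% of all tested genes were called. Of 25 coagulation factors edgeR, DESeq2 and voom called 0, with 2 at an unadjusted p under 0.05 in edgeR. Of 34 complement genes 1 was called, c7a (medians 5.87 CPM in Z+ and 2.54 CPM in A+; log2 fold change 1.11 ± 0.35, adjusted p = 0.0456), and of 17 serpins 1, serpinf1. Without A+ replicate 2, 0 complement genes were higher and 3 lower, and without all 8 fish that stand apart 0 of 33 were higher and 5 lower. Over all genes, the fit without the 8 fish had 1015 of 10747 higher and 770 lower. Of 29 acute phase and plasma protein genes, the antimicrobial peptide gene leap2 was higher, at 29.3, 84.4 and 125 CPM in Z+ livers, against 14.4, 30.3 and 40.7 CPM in A+ livers (log2 fold change 1.51 ± 0.49, adjusted p = 0.0473), as was angptl2b, at medians 17.4 CPM in Z+ and 3.34 CPM in A+ (log2 fold change 2.08 ± 0.58, adjusted p = 0.0267), and hamp was lower, with 1 higher and 4 lower without A+ replicate 2. Transferrin (tfa), among the most abundant hepatocyte markers, was at 32190.3, 46948 and 61702 CPM in Z+ livers, against 15651, 53138 and 65822 CPM in A+ livers and was not called. Of 19 genes of the growth hormone axis 1 was higher, igf2a, at medians 38.9 CPM in Z+ and 17.1 CPM in A+ (log2 fold change 1.08 ± 0.31, adjusted p = 0.0274). c7a lost the call in 10 of 12 leave-one-out fits (adjusted p up to 0.137, without Z+ replicate 3), leap2 lost it in 11 of 12 leave-one-out fits (adjusted p up to 0.111, without Z+ replicate 2), angptl2b lost it in 3 of 12 leave-one-out fits (adjusted p up to 0.0719, without Z+ replicate 2) and igf2a lost it in 3 of 12 leave-one-out fits (adjusted p up to 0.0787, without Z+ replicate 2).

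Of 54 interferon and antiviral genes, 4 were higher and 1, mhc1zfa, was lower (7.41% and 1.85%), against 5.91% and 5.92% of all genes. The median was 0.35, which was 0.21 with library totals. Without Z+ replicate 2, 2 were higher and 1 lower, and without all 8 fish that stand apart 3 of 49 were higher and 6 lower, with a median of -0.17. Over all genes, the fit without the 8 fish had 1015 of 10747 higher and 770 lower. The MHC class I gene mhc1zaa was at 15.9, 20.3 and 30.2 CPM in Z+ livers, against 3.99, 9.68 and 12.3 CPM in A+ livers (log2 fold change 1.17 ± 0.23, adjusted p = 0.00426). The interferon regulator gene irf2 was at medians 10.1 CPM in Z+ and 3.93 CPM in A+ (log2 fold change 1.15 ± 0.29, adjusted p = 0.0177). The kinase gene tbk1, which acts in antiviral signalling, was at 12.4, 14.1 and 17.7 CPM in Z+ livers, against 8.34, 9.06 and 11.9 CPM in A+ livers (log2 fold change 0.61 ± 0.16, adjusted p = 0.0197). The receptor genes il11ra, il13ra2 and il23r, chosen after their values were seen, were lower in Z+ than in A+ and in Z- than in A-, and il17ra1a, chosen in the same way, was higher in Z+ than in A+. The gene il11ra was at 1.48, 1.90 and 3.34 CPM in Z+ livers, against 4.12, 5.21 and 6.68 CPM in A+ livers (log2 fold change -1.33 ± 0.21, adjusted p = 0.000774). Median il11ra levels were 2.86 CPM in Z- and 5.49 CPM in A-. The gene il13ra2 was at medians 0.0767 CPM in Z+ and 0.6245 CPM in A+ (log2 fold change -3.69 ± 0.95, adjusted p = 0.0183), with 0.0481 CPM in Z- and 1.80 CPM in A-. The gene il23r was at 0.0371, 0.111 and 0.229 CPM in Z+ livers, against 0, 2.11 and 4.95 CPM in A+ livers (log2 fold change -4.15 ± 1.17, adjusted p = 0.0269). Median il23r levels were 0.0562 CPM in Z- and 2.38 CPM in A-. The gene il17ra1a was at 1.96, 3.32 and 4.97 CPM in Z+ livers, against 1.23, 1.52 and 2.21 CPM in A+ livers (log2 fold change 1.07 ± 0.28, adjusted p = 0.0208) and lower in Z- than in A- (log2 fold change -1.22, adjusted p = 0.0349). The cytokine signal gene stat6 was at 7.02, 8.34 and 10.8 CPM in Z+ livers, against 4.81, 5.33 and 6.31 CPM in A+ livers (log2 fold change 0.69 ± 0.13, adjusted p = 0.00395), with a difference of the differences of 1.08, adjusted p = 0.0118. Leukocyte markers summed to between 239 and 544 CPM in Z+ livers and between 142 and 503 CPM in A+ livers, and 0 of 30 tested were higher and 2 lower (6.67%). mhc1zaa, tbk1, il11ra and stat6 kept the call whichever fish was left out, and il13ra2 kept it in the 11 of 12 leave-one-out fits in which it passed the filter, irf2 lost it without Z+ replicate 2 (adjusted p = 0.0534), il23r lost it in 2 of 12 leave-one-out fits (adjusted p up to 0.0602, without Z+ replicate 2) and il17ra1a lost it without Z+ replicate 2 (adjusted p = 0.0668). il13ra2 did not pass the filter without A+ replicate 2, so that dependence on that fish could not be tested.

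Genes that respond to fasting, insulin and stress were called in both directions, where 5.91% of all tested genes were higher and 5.92% lower. Of 42 FoxO and fasting-response genes, 4 were higher and 4 lower, with 1 and 3 without Z+ replicate 2. The insulin receptor substrate gene irs2a was at 4.88, 12.1 and 20.5 CPM in Z+ livers, against 1.2, 3.01 and 8.70 CPM in A+ livers (log2 fold change 1.68 ± 0.50, adjusted p = 0.0354). The sestrin gene sesn3, whose product restrains mTORC1, was at 6.01, 11.2 and 15.7 CPM in Z+ livers, against 2.099, 2.57 and 8.997 CPM in A+ livers (log2 fold change 1.57 ± 0.48, adjusted p = 0.0384). The transcription factor foxo3a was itself lower, at 3.53, 5.97 and 7.34 CPM in Z+ livers, against 9.46, 12.7 and 20.3 CPM in A+ livers (log2 fold change -1.22 ± 0.30, adjusted p = 0.0153). Median foxo3a levels were 14.6 CPM in Z- and 17.6 CPM in A-. The growth arrest gene gadd45bb was at medians 0.965 CPM in Z+ and 2.68 CPM in A+ (log2 fold change -1.45 ± 0.37, adjusted p = 0.0171). No fish overlapped in foxo3a alone of these 4. Of 41 immediate early genes 2 were higher and 4 lower, with 0 and 1 without Z+ replicate 2. The gene zfp36l1b, whose product destabilises mRNAs, was at 82.3, 310.3 and 751 CPM in Z+ livers, against 43.6, 116 and 154 CPM in A+ livers (log2 fold change 1.68 ± 0.44, adjusted p = 0.02). The gene jund was at medians 13 CPM in Z+ and 7.60 CPM in A+ (log2 fold change 0.99 ± 0.31, adjusted p = 0.0435), and btg2 at 0.854, 1.99 and 8.61 CPM in Z+ livers, against 4.31, 6.97 and 94.8 CPM in A+ livers (log2 fold change -2.68 ± 0.72, adjusted p = 0.0222), highest in A+ replicate 2. Of 58 mTOR and AMPK genes 3 were higher and 2 lower, among them pik3cg (0.90 ± 0.27, 0.0332 as log2 fold change and adjusted p), prkag2b (0.86 ± 0.26, 0.0365), rragca (-0.78 ± 0.21, 0.0248) and rps6ka3b (-0.84 ± 0.25, 0.0321). The mTOR and AMPK counts were 0 and 2 without Z+ replicate 2 and 5 and 6 without A+ replicate 2. foxo3a, gadd45bb and rragca kept the call whichever fish was left out, and irs2a lost it in 8 of 12 leave-one-out fits (adjusted p up to 0.0897, without Z+ replicate 2), sesn3 lost it in 9 of 12 leave-one-out fits (adjusted p up to 0.0768, without Z+ replicate 4), zfp36l1b lost it without Z+ replicate 2 (adjusted p = 0.0748), jund lost it in 11 of 12 leave-one-out fits (adjusted p up to 0.0923, without Z+ replicate 6), btg2 lost it in 2 of 12 leave-one-out fits (adjusted p up to 0.137, without A+ replicate 2), pik3cg lost it in 5 of 12 leave-one-out fits (adjusted p up to 0.085, without Z+ replicate 2), prkag2b lost it in 5 of 9 leave-one-out fits (adjusted p up to 0.0685, without A+ replicate 6) and rps6ka3b lost it in 4 of 12 leave-one-out fits (adjusted p up to 0.0722, without Z+ replicate 1).

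Of lysosome, peroxisome and matrix genes, 5.36%, 15.6% and 5.77% were called, against 11.8% of all tested genes. Of 56 lysosomal genes, 2 hydrolase genes were higher. The gene gba was at 30.1, 37.8 and 47.7 CPM in Z+ livers, against 11.9, 20.2 and 31.7 CPM in A+ livers (log2 fold change 0.88 ± 0.18, adjusted p = 0.00524). The gene sgsh was at 3.97, 5.10 and 7.43 CPM in Z+ livers, against 2.18, 2.65 and 4.85 CPM in A+ livers (log2 fold change 0.90 ± 0.19, adjusted p = 0.0064). The cathepsin gene ctss2.1 was lower, with 330.3 CPM in A+ replicate 2 (2.58, 4.79 and 16.1 CPM in Z+ livers, against 4.60, 13.03 and 330.3 CPM in A+ livers; log2 fold change -3.37 ± 0.85, adjusted p = 0.0165). Of 32 peroxisome genes 3 were higher and 2 lower, with 6 and 3 without A+ replicate 2. The division gene pex11g was at 6.87, 12.9 and 13.5 CPM in Z+ livers, against 2.90, 4.76 and 5.45 CPM in A+ livers (log2 fold change 1.31 ± 0.23, adjusted p = 0.00151), with a difference between Z- and A- as well (log2 fold change 0.92, adjusted p = 0.044). The import gene pex13 was at 18.3, 22.2 and 28.4 CPM in Z+ livers, against 12.2, 15.1 and 17.3 CPM in A+ livers (log2 fold change 0.58 ± 0.12, adjusted p = 0.0064). Neither gene had any overlap between Z+ and A+ fish. The import gene pex14 was at medians 16.0 CPM in Z+ and 26.2 CPM in A+ (log2 fold change -0.68 ± 0.21, adjusted p = 0.0373). Of 52 tested collagens, laminins and remodelling genes 2 were higher and 1 was lower, loxl3b (log2 fold change -0.85 ± 0.26, adjusted p = 0.0394). The basement membrane gene nid2a was at 9.41, 11.1 and 22.6 CPM in Z+ livers, against 2.11, 3.37 and 5.12 CPM in A+ livers (log2 fold change 1.90 ± 0.39, adjusted p = 0.00484). The membrane collagenase gene mmp14b was at 6.04, 7.15 and 8.85 CPM in Z+ livers, against 2.90, 4.26 and 5.63 CPM in A+ livers (log2 fold change 0.76 ± 0.17, adjusted p = 0.00744). The fibroblast marker col1a1b was at 15.1, 30.3 and 46.4 CPM in Z+ livers, against 18.0, 25.8 and 31.5 CPM in A+ livers, and edgeR and DESeq2 called 0 of 11 stellate and fibroblast markers and 0 of 15 endothelial markers, with 1 and 3 at an unadjusted p under 0.05 in edgeR and 1 stellate marker called by voom. gba, sgsh, pex11g, pex13, nid2a and mmp14b kept the call whichever fish was left out, and ctss2.1 lost it without A+ replicate 2 (adjusted p = 0.144), pex14 lost it in 8 of 12 leave-one-out fits (adjusted p up to 0.0907, without A+ replicate 6) and loxl3b lost it in 5 of 11 leave-one-out fits (adjusted p up to 0.0731, without Z+ replicate 1). loxl3b did not pass the filter without A+ replicate 2, so that dependence on that fish could not be tested.

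Among the 47 function lists, the one with the greatest share of lower genes, cell cycle and DNA replication, had most of its A+ level in A+ replicate 2, the fish with the egg-cell transcripts. Of 60 tested genes, 0 were higher and 16 lower (26.7%, against 5.92% of all genes), with a median of -1.08. For 13 of the 16 more than 50% of the A+ level was in A+ replicate 2. Without that fish 0 were higher and 2 lower, and the median was -0.05. The mitotic kinase gene plk1 was at 0.636, 0.898 and 3.66 CPM in Z+ livers, against 0.492, 4.26 and 224 CPM in A+ livers (log2 fold change -5.09 ± 1.29, adjusted p = 0.0174). The cyclin gene ccnb1 was at 0.276, 0.741 and 11.01 CPM in Z+ livers, against 0.492, 7.40 and 375 CPM in A+ livers (log2 fold change -4.80 ± 1.45, adjusted p = 0.0364). The kinase gene aurka was at medians 0.303 CPM in Z+ and 2.05 CPM in A+ (log2 fold change -5.15 ± 1.31, adjusted p = 0.0175). All 3 had their highest value in that fish. The replication gene mcm10 was at 0.149, 1.04 and 2.18 CPM in Z+ livers, against 0.964, 4.86 and 16.7 CPM in A+ livers (log2 fold change -2.65 ± 0.60, adjusted p = 0.00981), spread over more of the A+ fish. The egg-coat gene zp3.2, at 0.312, 0.634 and 29.7 CPM in Z+ livers, against 2.02, 39.5 and 2033 CPM in A+ livers (log2 fold change -6.11 ± 1.97, adjusted p = 0.0463), and the germ cell gene tdrd6, at medians 0.297 CPM in Z+ and 1.75 CPM in A+ (log2 fold change -5.62 ± 1.43, adjusted p = 0.0173), were highest in the same fish. The epithelial marker epcam was at 19.2, 28.0 and 39.6 CPM in Z+ livers, against 32.7, 47.2 and 357 CPM in A+ livers (log2 fold change -1.84 ± 0.46, adjusted p = 0.0165), with 357 CPM in A+ replicate 2. mcm10 and epcam kept the call whichever fish was left out, and tdrd6 kept it in the 10 of 12 leave-one-out fits in which it passed the filter, aurka kept it in the 9 of 12 leave-one-out fits in which it passed the filter, plk1 lost it without A+ replicate 2 (adjusted p = 0.0781), ccnb1 lost it in 6 of 12 leave-one-out fits (adjusted p up to 0.283, without A+ replicate 2) and zp3.2 lost it in 7 of 12 leave-one-out fits (adjusted p up to 0.199, without A+ replicate 2). aurka and tdrd6 did not pass the filter without A+ replicate 2, so that dependence on that fish could not be tested.

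Among the 10 most abundant called genes by mean level over the 12 fish, 8 had symbols. The entries listed by sequence identifiers alone were lower in Z+ than in A+. They had 59018 counts summed over the Z+ fish against 213789 over the A+ fish, and 81140 against 171856. These entries lost the call in 5 and in 11 of 12 leave-one-out fits (adjusted p up to 0.0815 and 0.0909, each without A+ replicate 5). The yolk protein gene vtg6, at 0.843, 34.1 and 27379 CPM in Z+ livers, against 4.55, 7.501 and 19.9 CPM in A+ livers, rested on Z+ replicate 5. Its log2 fold change of 8.85 ± 2.86 (adjusted p = 0.0472) was not called without that fish, and vtg6 lost the call in 11 of 12 leave-one-out fits (adjusted p up to 0.25, without Z+ replicate 5). The related genes vtg1 and vtg2, which could share reads with it, were at medians of 4504 and 1474 CPM in Z+ and 479.7 and 117 CPM in A+ and were not called. The ribonuclease gene rnasel2 was at 358, 614 and 792 CPM in Z+ livers, against 459, 999.5 and 2317 CPM in A+ livers (log2 fold change -0.98 ± 0.29, adjusted p = 0.0342). The gene si:ch211-270n8.1 was at 14.9, 186 and 339 CPM in Z+ livers, against 148, 431 and 1570.3 CPM in A+ livers (log2 fold change -1.94 ± 0.61, adjusted p = 0.0428) (114 CPM in Z- and 674 CPM in A-). The fish overlapped in both genes, and si:ch211-270n8.1 was lower in Z- than in A- as well (log2 fold change -2.80, adjusted p = 0.0279). The others with symbols were me1, mfsd2ab, fkbp5, aacs and bcat1, whose values are given with their groups. rnasel2 lost the call in 6 of 12 leave-one-out fits (adjusted p up to 0.0975, without A+ replicate 6) and si:ch211-270n8.1 lost it in 6 of 12 leave-one-out fits (adjusted p up to 0.103, without A+ replicate 4).

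The transgene entry, which does not separate the forms of the protein, was at 903, 4304 and 6894 CPM in Z+ livers, against 1555, 3322 and 4871 CPM in A+ livers and was not called (log2 fold change 0.29 ± 0.79, adjusted p = 0.843). Non-transgenic fish held at most 7.34 CPM. Z+ replicate 5 was at 903 CPM, below the other Z+ fish, which were between 3623 and 6894 CPM. The zebrafish gene serpina1 was at 2776, 9826 and 10739.8 CPM in Z+ livers, against 2567, 11132 and 13846 CPM in A+ livers (log2 fold change -0.29 ± 0.35, adjusted p = 0.627), and its neighbour serpina1l at 282, 1269 and 2755 CPM in Z+ livers, against 296, 3498 and 4283 CPM in A+ livers (log2 fold change -0.95 ± 0.60, adjusted p = 0.322), neither of them called.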

How the data were processed

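Livers of 24 zebrafish of 4 genotypes were sequenced. The authors aligned the reads with STAR, through the RNAsik pipeline, to GRCz11 with the transgene added, and deposited raw counts per gene from featureCounts. A gene was tested where 3 or more of the fish had a count over 100 (11801 genes of 28210). These counts were scaled by TMM and fitted in edgeR 4.0.16 (R 4.3.3) with 1 quasi-likelihood model of the 4 genotype means, and p-values were adjusted by Benjamini-Hochberg at 0.05. CPM values use the TMM-scaled library sizes, and limma 3.58.1 (voom) and DESeq2 1.42.0 were alternatives. The method was also run on simulated counts without outlying fish, which cannot show how it handles calls that rest on single fish. The study left out fish it judged to be outliers, which the sources used here do not name, and all 24 were kept here.

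The Z+ against A+ comparison and the 59 lists (47 of functions, 12 of marker genes) were chosen with earlier results of these data known. Named genes were the transgene and serpina1 genes, the 12 largest rises and falls that did not overlap, the 10 smallest p-values, the 10 most abundant called genes, the 2 most significant per list and direction, and the 2 most abundant per marker list, and a few genes of the rule are not reported here. A further 46 genes, mostly other called members of the nuclear receptor, UPR, clock, heat shock and mitochondrial lists, cytokine receptors and genes that differed beyond the non-transgenic fish, were chosen after their values were seen. Alternatives covered scaling, filters, fish, replicate block, vitellogenin covariate, tool and thresholds.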

Additional observations from a re-analysis of the deposited data

Results flagged for a closer look

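Within each group of 6 fish, a fish was taken as standing apart where the highest or lowest value on the log2 scale lay farther from the nearest other fish than Dixon's 95% limit for 6 values. This was tested in 442 groups of the genes named, and 52 fish values stood apart. The limit is passed in about 1 in 20 groups of independent, normally distributed values. The genes share the same fish and were mostly named for being called in them, so 52 cannot be set against that rate. A+ replicate 2 was the fish apart, on the high side, for tmem243a (12.1 CPM), coa3b (9.58 CPM), btg2 (94.8 CPM), loxl3b (6.40 CPM), sgsh (4.85 CPM), kdm6al (36.4 CPM), rbm25b (43.0 CPM), ddx19 (128 CPM) and snrpb2 (34.3 CPM). On the low side it stood apart for serpina1 (2567 CPM), an entry listed by a sequence identifier (212 CPM), cyp4v8 (71.0 CPM), timm50 (36.5 CPM), mthfs (4.35 CPM), hamp (1.74 CPM), pex11g (2.90 CPM), tfa (15651 CPM), apoa1b (9192 CPM), krt8 (411 CPM), kdrl (20.8 CPM), nr0b1 (7.97 CPM) and lrrc8db (2.71 CPM). For the transferrin gene tfa the other A+ fish were between 43969 and 65822 CPM, for hamp between 35.2 and 199 CPM and for snrpb2 between 8.89 and 9.36 CPM. The same fish held 10630 CPM of egg-cell markers and had a TMM factor of 1.75, against 0.891 to 1.06 in the other A+ fish. A factor above 1 lowers every CPM of a fish against library totals. The part of these markers and of the scaling in its other values was not tested.

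Z+ replicate 5 was the fish apart, on the high side, for pex14 (30.2 CPM). On the low side it stood apart for the transgene entry (903 CPM), serpina1 (2776 CPM), mhc1zfa (0 CPM), zdhhc8b (0.111 CPM), si:ch211-270n8.1 (14.9 CPM), hsf2 (11.8 CPM), fbxo30b (0.520 CPM), loxl3b (0.891 CPM) and plin1 (20.1 CPM). A+ replicate 5 was the fish apart, on the high side, for rxrgb (6.62 CPM) and sesn3 (8.997 CPM). On the low side it stood apart for plin1 (1.17 CPM) and map3k5 (4.60 CPM). Z+ replicate 2 was the fish apart, on the high side, for nid2a (22.6 CPM), rbm25a (25.8 CPM) and cry1aa (39.8 CPM). On the low side it stood apart for snrpb2 (3.04 CPM). Z+ replicate 3 stood apart on the high side for plk1 (3.66 CPM), zp3.2 (29.7 CPM) and zp3b (25.6 CPM). A+ replicate 4 was the fish apart, on the high side, for lrrk2 (13.7 CPM). On the low side it stood apart for b3gnt2b (7.17 CPM). Z+ replicate 1 was the fish apart, on the high side, for rragca (14.7 CPM). On the low side it stood apart for lmbr1l (23.9 CPM). Z+ replicate 6 stood apart on the high side for si:ch211-254c8.3 (0.138 CPM) and zgc:165583 (0.0553 CPM). A+ replicate 1 stood apart on the low side for mfn2 (24.6 CPM). A+ replicate 3 stood apart on the low side for col1a1b (18.0 CPM). A+ replicate 6 stood apart on the high side for fibinb (4.98 CPM). Z+ replicate 5 is the fish with 792403 CPM of vitellogenin transcripts, and its transgene level compares with other Z+ fish between 3623 and 6894 CPM. The TMM factor of Z+ replicate 5 was 0.652, which raises its CPM values, against 0.893 to 1.16 in the other Z+ fish. The part of this scaling in its values was not tested.

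Among the genes named, 21 had a called difference between Z+ over A+ and Z- over A-, tested as an interaction term in edgeR, with the log2 size of the difference and its adjusted p as follows. It was above 2 for slc26a3.2 (5.02, 0.00646), klhl24b (4.03, 0.00646), rapgef3 (2.97, 0.0144), abo (2.56, 0.0173), lmbr1l (2.36, 0.0435), slc25a36a (2.36, 0.021), il17ra1a (2.29, 0.0118) and nr1h4 (2.18, 0.0313). It was between 1 and 2 for nr2c2 (2.00, 0.0208), map3k5 (1.99, 0.0118), met (1.87, 0.018), lrrc8db (1.85, 0.00646), b3gnt2b (1.68, 0.0118), ern2 (1.59, 0.0327), pld1a (1.46, 0.0296), mmp14b (1.35, 0.0118), nr1h3 (1.34, 0.0173), creb3l3l (1.32, 0.0313), stat6 (1.08, 0.0118) and gnptab (1.04, 0.015). For timm50 alone it was negative (-1.20, 0.015). In klhl24b, nr2c2, abo, met and slc25a36a the Z+ median was the highest of the 4 genotypes, while in stat6, gnptab, lrrc8db and map3k5 A+ was also called below A-.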

How the results depend on the processing

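The counts of genes moved with the processing as follows, against 698 higher and 699 lower genes, 359 that did not overlap, 138 called in Z- against A- and 62 with a called difference of the differences. Library totals gave 174 higher genes, 211 that did not overlap, 89 in Z- against A- and 1 difference of the differences, and 81 of the 197 called genes named lost the call. DESeq2's size factors in edgeR gave 601 higher and 770 lower genes. With only the 12 Z+ and A+ fish the model gave 236 higher and 92 lower genes of 11083 tested, with 226 that did not overlap. In that fit 7 of 39 nuclear receptor genes and 2 of 21 UPR genes were higher, and 0 of either list were lower. Of 31 clock genes and of 162 chromatin regulators, 1 was higher and 1 lower in each list. Of 43 heat shock and 58 cell cycle genes, 0 were called. voom with sample weights gave 1180 higher genes, 319 in Z- against A- and 476 differences of the differences, and DESeq2 gave 1120 lower genes, 660 and 943. The vitellogenin covariate gave 1220 lower genes and 480 differences of the differences, and turned vtg6 to a log2 fold change of -0.066 from 8.85. Without a filter there were 1547 lower genes and 3 differences of the differences, and with filterByExpr 1077 lower genes and 227 in Z- against A-. An adjusted p under 0.01 left 174 higher, 105 lower, 188 that did not overlap, 53 and 3, and a fold change of at least 2 left 335, 425 and 185 that did not overlap. The causes were not tested. Leaving out 1 fish at a time gave between 279 and 1025 higher genes, 282 and 808 lower, 275 and 714 that did not overlap, 112 and 233 in Z- against A- and 30 and 285 differences of the differences. Of alternatives chosen after seeing the data, leaving out the 4 fish with intestine transcripts gave 464 higher genes, 594 that did not overlap and 246 differences of the differences. Leaving out the 2 fish with most vitellogenin gave 728 that did not overlap and 113 differences of the differences. Leaving out A+ replicates 1 and 2 gave 956 that did not overlap, 216 in Z- against A- and 300 differences of the differences. Leaving out all 8 fish that stood apart gave 1015 higher and 770 lower genes of 10747 tested. It gave 1711 that did not overlap, 229 in Z- against A- and 439 differences of the differences. That fit kept Z+ replicates 1, 2 and 4 and A+ replicates 3, 4 and 6. Groups with fewer fish overlap less readily, so counts of non-overlapping genes with fish left out cannot be set against the 359 of all fish. The labels do not say that fish of the same replicate number belong together. The correlations of same-numbered fish lay between -0.24 and 0.29, and 0 of 6 Z+ fish correlated best with the A+ fish of its number. Fish that stand apart weigh on these correlations, so they cannot tell whether a number marks a shared batch. With the replicate number as a block there were 500 higher and 288 lower genes.

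At 33898825 counts or more a fish, genes under about 1 CPM rest on few reads. Each form of the protein is carried by 1 line, so form and line cannot be told apart, and cell makeup was not measured. Of the named genes called, DESeq2 kept the call in 196 of 196 with a value and voom in 159 of 197. With only the 12 Z+ and A+ fish in the model, 76 of 183 with a value kept the call and 107 lost it. Among those that lost it were ern2, zbtb16a, aacs and pdia6, which kept the call whichever single fish was left out. The direction turned in 1 gene under 1 alternative, vtg6 with the vitellogenin covariate, of which vtg6 is itself a part.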

Other observations

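Some genes of other functions were called as well, chosen after their values were seen. The nitric oxide synthase gene nos1 was at 0.8294, 0.861 and 1.74 CPM in Z+ livers, against 3.28, 4.67 and 8.18 CPM in A+ livers (log2 fold change -2.17 ± 0.40, adjusted p = 0.00281), and the groups did not overlap. The Z- and A- fish stood at 1.34 CPM in Z- and 4.44 CPM in A- (log2 fold change -1.23, adjusted p = 0.122). The gene cemip, for a protein that takes part in the breakdown of hyaluronan, was at 0.421, 5.49 and 20.9 CPM in Z+ livers, against 0.653, 1.51 and 1.998 CPM in A+ livers (log2 fold change 2.504 ± 0.72, adjusted p = 0.0302). Its Z+ fish overlapped the A+ fish, and it was also higher in Z- (10.9 CPM) than in A- (1.102 CPM, log2 fold change 3.24, adjusted p = 0.0318). It lost the call in 3 of 12 leave-one-out fits. Testis-associated genes went both ways: spata4 was at 0.260, 2.84 and 4.94 CPM in Z+ livers, against 0.120, 0.734 and 1.69 CPM in A+ livers (log2 fold change 1.82 ± 0.58, adjusted p = 0.0461) and spata22 at 0.391, 0.643 and 1.16 CPM in Z+ livers, against 0.249, 2.85 and 8.24 CPM in A+ livers (log2 fold change -2.42 ± 0.66, adjusted p = 0.0244). Both overlapped between Z+ and A+ livers, and spata4 lost the call in 8 of 12 leave-one-out fits (adjusted p up to 0.116, without Z+ replicate 2) and spata22 lost it in 2 of 12 leave-one-out fits (adjusted p up to 0.0602, without Z+ replicate 2).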
